A study of Mus musculus with 18 samples.

Results

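Knockout colons in dextran sulfate sodium (DSS) colitis are compared here, 2 libraries from Il1f9-/- mice against 3 libraries labelled Il1f5-/-, which are 5 of the 10 colitis libraries and 5 of the 18 libraries of the series. The members were chosen by their labels alone. In Il1f9-/- colons 17 of 19 endothelial, 25 of 35 matrix, 13 of 18 neutrophil, 12 of 20 macrophage and 13 of 19 circadian clock genes were called lower than in the libraries labelled Il1f5-/-, beside 10.1% of all genes. Without Il1f9-/- replicate 2 these counts were 7, 8, 2, 7 and 8. Of 30 genes of xenobiotic metabolism 13 were higher and 4 lower, and of 25 immediate early and heat shock genes 10 were higher and 1 lower, beside 11.2% of all genes higher. Without the same library 4 and 6 genes of these lists were higher. Of the genes called lower between the knockouts, 9 macrophage and 14 matrix genes were called higher in Il1f9+/+ than in Il1f5+/+, and 7 clock genes were called lower there too, beside 3.25% of all genes higher and 1.68% lower between the wild types.

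Interleukin-36 (IL-36) cytokines belong to the IL-1 family and are made mainly by epithelial cells and myeloid cells. Il1f6, Il1f8 and Il1f9 encode the agonists IL-36 alpha, beta and gamma, which bind the receptor Il1rl2 with its partner Il1rap and signal through MyD88 to NF-kB and MAP kinases. Il1f5, also called Il36rn, encodes the antagonist that occupies the same receptor without signalling. In the colon the pathway is known for its part in mucosal inflammation, in repair after injury and in fibrosis.

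By label, Il1f9-/- removes an agonist and Il1f5-/- removes the antagonist. All mice were C57BL/6, and all colitis mice drank 2.5% DSS, a polymer that injures the colon epithelium, for 5 days and then plain water for 2 days. A 0.5 cm piece of distal colon near the anus was taken, so every library is bulk tissue of epithelium, stroma, muscle and infiltrating cells. Each knockout has a wild-type group of its own line, Il1f9+/+ with 2 libraries and Il1f5+/+ with 3 libraries. The 2 knockouts come from 2 lines. The difference between Il1f9+/+ and Il1f5+/+ is therefore given beside the knockout difference for some genes and lists, though not for all. All 10 colitis libraries were fitted together, so the wild types also enter the estimate of spread behind the knockout p-values. The study's design counts as many mice as there are libraries in each group, without saying that each library is 1 mouse. Age, batch, time of day of collection and litters are not given in the sources used here, so p-values measure the spread between these libraries, which may be technical in part.

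The 5 knockout libraries held 17490357 to 20564826 counts, with 2.89 to 3.56% of counts on mitochondrial genes. Levels are CPM, the counts scaled to a common library size after TMM normalization, a scale that compares libraries and not genes of different length. Correlations of log2 CPM were 0.980 to 0.985 within a knockout group and 0.959 to 0.976 between the groups. Knockout replicates differed by more than sampling noise, as a chi-square over genes came to 18.5 to 32.8 for each gene, so none was counted as a copy. On the first principal component of the 10 colitis libraries, which held 31.8% of the variance, the library labelled Il1f5-/- replicate 3 stood apart at -17.2, beside -46.2 and -55.0 for replicates 1 and 2. All 10 libraries had reads of the Y-linked gene Ddx3y, at 67.7 and 69.3 CPM in Il1f9-/- colons and 73.2, 71.8 and 69.7 CPM in the libraries labelled Il1f5-/-. The intestinal epithelial factor Cdx2 had 392 and 386 CPM in Il1f9-/- colons, against 279, 249 and 309 CPM in the libraries labelled Il1f5-/-, as the tissue label says.

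The targeted genes were read first. Il1f9 lies on chromosome 2 (24186476 to 24193568) and Il1f5 on the same chromosome (24276954 to 24283426), 83386 bases apart, in the coordinates of the deposited table. Il1f9 had 9 and 1 counts in Il1f9-/- colons, against 37, 56 and 84 counts in the libraries labelled Il1f5-/-, 232 and 90 in Il1f9+/+ and 34, 26 and 67 in Il1f5+/+. Il1f9 was thus lower in the group labelled as its knockout (log2 fold change -3.47 ± 0.79, adjusted p = 0.0139). Il1f5 had 0 counts in both Il1f9-/- colons, against 36, 43 and 45 counts in the libraries labelled Il1f5-/-. It also had 0 counts in all 5 wild-type colitis libraries, which allows up to 3 counts in each. The antagonist's transcript was therefore read only in the libraries whose label says that it was deleted, in the 10 colitis libraries, and was at least 26.7-fold lower in Il1f9-/- colons when the 0 is set at 3 counts over the group. By the label alone these libraries would hold no intact Il1f5, yet they were the only colitis libraries with its reads. Whether the reads come from a part of the gene outside the deletion, and what they say of the genotype, was not tested. Every direction below is drawn against libraries labelled Il1f5-/-. Floors and counting intervals cover counting error only.

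Of the other IL-36 genes, the receptor Il1rl2 had 3.14 and 3.4 CPM in Il1f9-/- colons, against 6.72, 8.67 and 6.94 CPM in the libraries labelled Il1f5-/- (log2 fold change -1.19 ± 0.24, adjusted p = 0.00734). The knockout groups did not overlap, and the wild types had 4.67 and 7.24 CPM in Il1f9+/+ and 3.75, 3.92 and 3.33 CPM in Il1f5+/+. The partner Il1rap had 8.98 and 5.93 CPM in Il1f9-/- colons, against 9.97, 12.1 and 12.3 CPM in the libraries labelled Il1f5-/- and did not pass (log2 fold change -0.63 ± 0.21, adjusted p = 0.0564). Il1f8, the gene of IL-36 beta, stayed near the floor with 8 and 4 counts in Il1f9-/- colons and 4, 6 and 0 counts in the libraries labelled Il1f5-/-. Il1f6 had at most 1 count in each knockout library and Il1f10 had 0 in all of them, so no difference in these was detectable at this depth. Cathepsin S (Ctss), a protease known to activate IL-36 gamma, had 323 and 290.2 CPM in Il1f9-/- colons, against 241, 284 and 329 CPM in the libraries labelled Il1f5-/- (log2 fold change 0.11 ± 0.13, adjusted p = 0.579), with overlapping groups. Among the 6 tested members of the IL-36 list, 3 were lower and 0 higher, beside 10.1% of all genes lower. The 3 are the targeted genes Il1f9 and Il1f5, which define the groups by label, and Il1rl2. The count is therefore no result about the pathway. The call ended for Il1f9 without Il1f9-/- replicate 2 (adjusted p = 0.0941), and for Il1rl2 without Il1f9-/- replicates 1 or 2 (adjusted p 0.055 to 0.0551). The log2 fold change was -5.80 without Il1f9-/- replicate 1 for Il1f9. The list count of 3 lower became 1 without Il1f9-/- replicate 2.

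Over all 18299 genes tested with edgeR's quasi-likelihood test, 2055 were higher in Il1f9-/- colons (11.2%) and 1849 were lower (10.1%) at a Benjamini-Hochberg adjusted p under 0.05. The falls were larger than the rises. With a change of at least 2-fold the counts were 215 higher and 688 lower, and the median log2 fold change was 0.563 among genes called higher and -0.82 among genes called lower. The median over all tested genes was -0.033, which is the baseline for the medians of lists given below. The calls lean on the pair of Il1f9-/- libraries. Without Il1f9-/- replicate 2, 486 genes were higher and 399 lower, without Il1f9-/- replicate 1 743 were higher and 824 lower, and without the library labelled Il1f5-/- replicate 3 2357 were higher and 2672 lower. Of 169 called genes that the naming rule picked, 65 stayed called with each of the 10 colitis libraries left out in turn, and 60 lost the call only when an Il1f9-/- library was left out. Losses are given beside the genes, each for a refit without 1 library. Near the targeted genes, 8 of 143 tested genes within 5 Mb were higher and 15 lower, which is 16.1% called against 21.3% over all genes. By chromosome the share ran from 17.7% on chromosome 9 to 24.4% on chromosome 3.

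**Figure D1:**
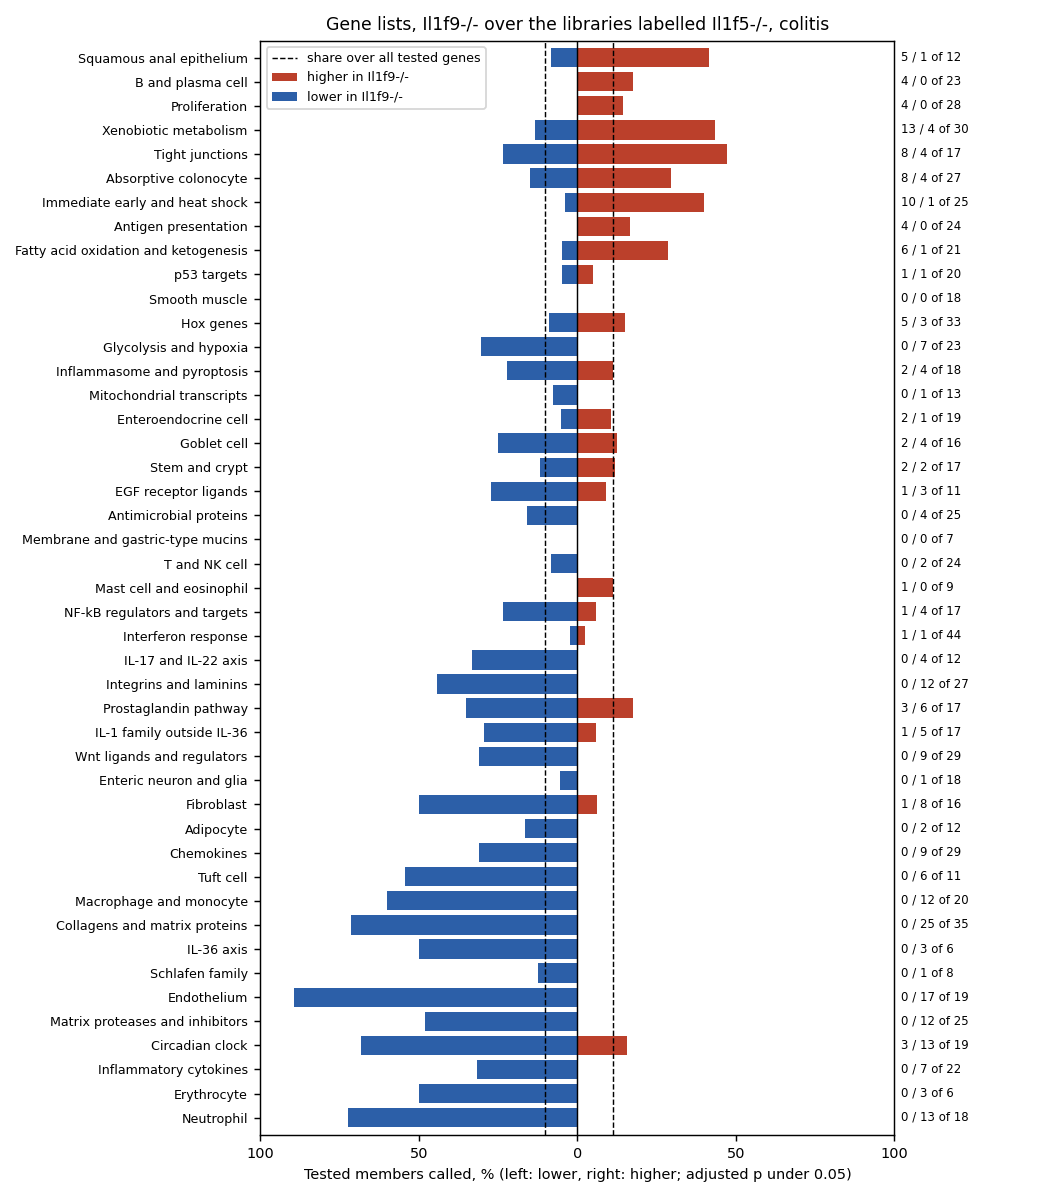
Share of each list's tested members (sex-linked genes, with 0 calls, not drawn) called higher (right, red) or lower (left, blue) in Il1f9-/- colons than in the libraries labelled Il1f5-/-, with lists ordered by median log2 fold change, counts at the right edge and dashed lines at the shares over all genes, 11.2% higher and 10.1% lower. Endothelium, with 17 of 19 members lower, and neutrophil, with 13 of 18 lower, reach farthest to the left.

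Among the 10 largest rises by the naming rule, 6 kept the call in every refit. Abcg5, a subunit of a sterol exporter, had 7.6 and 7.45 CPM in Il1f9-/- colons, against 1.35, 0.448 and 0.902 CPM in the libraries labelled Il1f5-/- (log2 fold change 3.06 ± 0.33, adjusted p = 0.00095). Vsig1, a junction protein of gastric epithelium, had 6.33 and 6.89 CPM in Il1f9-/- colons, against 1.03, 1.29 and 0.959 CPM in the libraries labelled Il1f5-/- (log2 fold change 2.58 ± 0.30, adjusted p = 0.0011). Lpo, the peroxidase lactoperoxidase, had 191 and 244 CPM in Il1f9-/- colons, against 44.6, 25.7 and 38.7 CPM in the libraries labelled Il1f5-/- (log2 fold change 2.58 ± 0.24, adjusted p = 0.0011). For the largest rises and falls the naming rule takes only genes whose knockout groups do not overlap, so the lack of overlap in them was fixed by the choice. Called list members also had no overlap in any list, as in all 12 called macrophage and all 25 called matrix genes. In them too a lack of overlap goes with the call and is no further support. The wild types did not share one pattern. Abcg5 took the opposite order, with 1.64 and 1.81 CPM in Il1f9+/+ and 6.64, 5.46 and 4.79 CPM in Il1f5+/+. Its wild-type log2 fold change was -1.70 ± 0.34 (edgeR adjusted p = 0.0196). Lpo had 36.6 and 23.3 CPM in Il1f9+/+ and 35.6, 38.7 and 41.1 CPM in Il1f5+/+, close to the libraries labelled Il1f5-/-, whereas Vsig1 had 10.8 and 7.55 CPM in Il1f9+/+ and 9.75, 8.16 and 5.13 CPM in Il1f5+/+, above the libraries labelled Il1f5-/- in every library. Slc34a2, a phosphate transporter, was higher by 2.51 ± 0.38 on the log2 scale (adjusted p = 0.00281), and Phlda2, an imprinted growth regulator, by 2.22 ± 0.32 (adjusted p = 0.0022). Slc34a2 was also higher between the wild types, by 2.10 ± 0.38 (edgeR adjusted p = 0.0142). It had 12.4 and 7.04 CPM in Il1f9+/+ and 2.73, 2.15 and 1.92 CPM in Il1f5+/+. Arntl, the clock activator also called Bmal1, completes these 6 and is described with the clock. The other 4 were Cyp3a44, a cytochrome P450 with near-identical neighbours that can share its reads (2.58 ± 0.74, adjusted p = 0.0309), the linker histone Hist1h1d (2.09 ± 0.41, adjusted p = 0.00631), Hoxb13, a homeobox gene of the most distal gut (2.38 ± 0.68, adjusted p = 0.0481), and Hottip, an RNA from the antisense strand beside Hoxa13 (2.20 ± 0.68, adjusted p = 0.0485). The libraries do not mark strand, so reads of Hottip can be told from those of its sense neighbour only where the genes do not overlap. Calls were lost for Hist1h1d without Il1f9-/- replicate 2 (adjusted p = 0.112), and for Cyp3a44 without Il1f9-/- replicate 1 or labelled Il1f5-/- replicates 1 or 2 (adjusted p 0.0681 to 0.288). Omitting a library ended calls for Hoxb13 without Il1f9-/- replicate 2, labelled Il1f5-/- replicates 1, 2 or 3, Il1f9+/+ replicates 1 or 2 or Il1f5+/+ replicates 2 or 3 (adjusted p 0.0506 to 0.322), and for Hottip without Il1f9-/- replicates 1 or 2, labelled Il1f5-/- replicates 1, 2 or 3, Il1f9+/+ replicates 1 or 2 or Il1f5+/+ replicates 1 or 2 (adjusted p 0.053 to 0.25). Log2 fold changes moved to 1.47 without Il1f9-/- replicate 1 for Cyp3a44, 1.20 without Il1f9-/- replicate 2 for Hist1h1d and 1.15 without Il1f9-/- replicate 2 for Hoxb13.

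The 10 largest falls included proteases, acute phase and clock genes. Mmp10, the matrix protease stromelysin-2, had 5.55 and 2.23 CPM in Il1f9-/- colons, against 86.3, 102 and 59.4 CPM in the libraries labelled Il1f5-/- (log2 fold change -4.43 ± 0.59, adjusted p = 0.00432). Lcn2, lipocalin-2, which withholds iron from bacteria, had 16.5 and 5.37 CPM in Il1f9-/- colons, against 74.01, 212 and 103 CPM in the libraries labelled Il1f5-/- (log2 fold change -3.59 ± 0.87, adjusted p = 0.0306). Mmp8, the neutrophil collagenase, had 0.844 and 0.355 CPM in Il1f9-/- colons, against 8.89, 32.6 and 18.8 CPM in the libraries labelled Il1f5-/- (log2 fold change -5.10 ± 1.28, adjusted p = 0.0341). In both genes replicate 1 labelled Il1f5-/- was the lowest of its group. Serpina3m, a serine protease inhibitor, was lower, at -4.22 ± 0.65 on the log2 scale (adjusted p = 0.00477) and Cemip, a hyaluronan-degrading protein, at -3.58 ± 0.78 (adjusted p = 0.0214). Prok2, prokineticin 2, had 1 and 0 counts in Il1f9-/- colons, against 11, 40 and 57 counts in the libraries labelled Il1f5-/-, a ratio of 69.7-fold lower with a 95% exact counting interval of 12.2 to 2780. Orm2, an acute phase protein, had 2 and 0 counts in Il1f9-/- colons, against 38, 25 and 20 counts in the libraries labelled Il1f5-/-, 26.8-fold lower with an interval of 7.19 to 225. Il1f9 itself and the clock genes Dbp and Ciart were the remaining 3 of the 10. Calls also ended for Serpina3m and Il1f9 without Il1f9-/- replicate 2 (adjusted p 0.0583 to 0.0941), and for Cemip and Prok2 without Il1f9-/- replicates 1 or 2 (adjusted p 0.0563 to 0.13). Refits lost the call for Lcn2 and Mmp8 without Il1f9-/- replicates 1 or 2, labelled Il1f5-/- replicate 2 or Il1f9+/+ replicates 1 or 2 (adjusted p 0.0523 to 0.198), and for Orm2 without Il1f9-/- replicates 1 or 2, labelled Il1f5-/- replicates 1 or 2 or Il1f9+/+ replicates 1 or 2 (adjusted p 0.0541 to 0.213). Refitted log2 fold changes were -7.84 without Il1f9-/- replicate 1 for Orm2 and -5.80 without Il1f9-/- replicate 1 for Il1f9. Between the wild types Prok2, Orm2 and Serpina3m had the opposite sign. They were higher in Il1f9+/+ by 4.15 ± 0.71, 3.61 ± 0.72 and 2.33 ± 0.49 (edgeR adjusted p = 0.0139, 0.028 and 0.037). Dbp was lower there too (-3.45 ± 0.27, adjusted p = 0.000303).

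Neutrophil markers were lower as a group. Of 18 tested markers, 13 were lower and 0 higher, with a median log2 fold change of -2.78, or -2.75 with the member that is at 0 in one group set at 3 counts. Fpr1, a receptor for bacterial formyl peptides, had 0.844 and 0.557 CPM in Il1f9-/- colons, against 3.47, 5.53 and 4.85 CPM in the libraries labelled Il1f5-/- (log2 fold change -2.72 ± 0.50, adjusted p = 0.00565). Csf3r, the receptor of the neutrophil growth factor G-CSF, had 8.26 and 3.14 CPM in Il1f9-/- colons, against 22.5, 15.04 and 26.7 CPM in the libraries labelled Il1f5-/- (log2 fold change -1.92 ± 0.36, adjusted p = 0.00835), and its call held in every refit. Every library labelled Il1f5-/- lay above both Il1f9-/- colons in these genes. Padi4, which citrullinates histones in neutrophils, was lower, at -2.31 ± 0.49 on the log2 scale (adjusted p = 0.00834) and Stfa2l1, a stefin with close copies that can share reads, at -3.08 ± 0.62 (adjusted p = 0.00719). S100a8, a calprotectin subunit, had 17.4 and 8.51 CPM in Il1f9-/- colons, against 51.8, 209 and 145 CPM in the libraries labelled Il1f5-/- (log2 fold change -3.40 ± 0.84, adjusted p = 0.0327). The summed level of all 22 markers was 214 to 295 CPM in Il1f9-/- colons, against 368 to 919 CPM in the libraries labelled Il1f5-/-, and 3 of the 22 had 0 counts in both Il1f9-/- colons. In bulk tissue, fewer cells of a type and less RNA per cell cannot be told apart. In the wild types the same sum was 978 to 1721 CPM in Il1f9+/+ and 240.5 to 527 CPM in Il1f5+/+, the opposite order, and 4 of the 18 markers were higher in Il1f9+/+ and 0 lower (median 2.25). Over all genes 3.25% were higher and 1.68% lower in that comparison. The count of 13 lower became 2 without Il1f9-/- replicate 2 and 6 without Il1f9-/- replicate 1 or labelled Il1f5-/- replicate 2. Leave-one-out refits ended calls for Fpr1, Padi4 and Stfa2l1 without Il1f9-/- replicate 2 (adjusted p 0.0658 to 0.0933), and for S100a8 without Il1f9-/- replicates 1 or 2 or labelled Il1f5-/- replicates 2 or 3 (adjusted p 0.0517 to 0.19). As a log2 fold change, the refit gave -4.75 without Il1f9-/- replicate 1 for Stfa2l1.

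Macrophage and monocyte markers moved the same way. Of 20 tested, 12 were lower and 0 higher (median -0.86). Cd163, the scavenger receptor for haemoglobin, had 5.79 and 4.36 CPM in Il1f9-/- colons, against 30.2, 28.5 and 19.00 CPM in the libraries labelled Il1f5-/- (log2 fold change -2.36 ± 0.27, adjusted p = 0.00128). Cd68, a lysosomal protein of macrophages, had 6.99 and 5.93 CPM in Il1f9-/- colons, against 16.4, 13.9 and 15.6 CPM in the libraries labelled Il1f5-/- (log2 fold change -1.24 ± 0.15, adjusted p = 0.00137). The complement subunits C1qb and C1qc, made by resident macrophages, were lower, at -0.88 ± 0.13 (adjusted p = 0.00272) and -0.84 ± 0.12 (adjusted p = 0.00232) on the log2 scale. The calls of these 4 genes held in every refit. Summed over the list, levels were 386 to 463 CPM in Il1f9-/- colons, against 652 to 808 CPM in the libraries labelled Il1f5-/-. In the wild types 13 of the 20 were higher in Il1f9+/+ than in Il1f5+/+ and 0 lower (median 0.98), with sums of 1275 to 1552 CPM in Il1f9+/+ and 636 to 721 CPM in Il1f5+/+. The count of 12 lower became 7 without Il1f9-/- replicate 2.

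**Figure D2:**
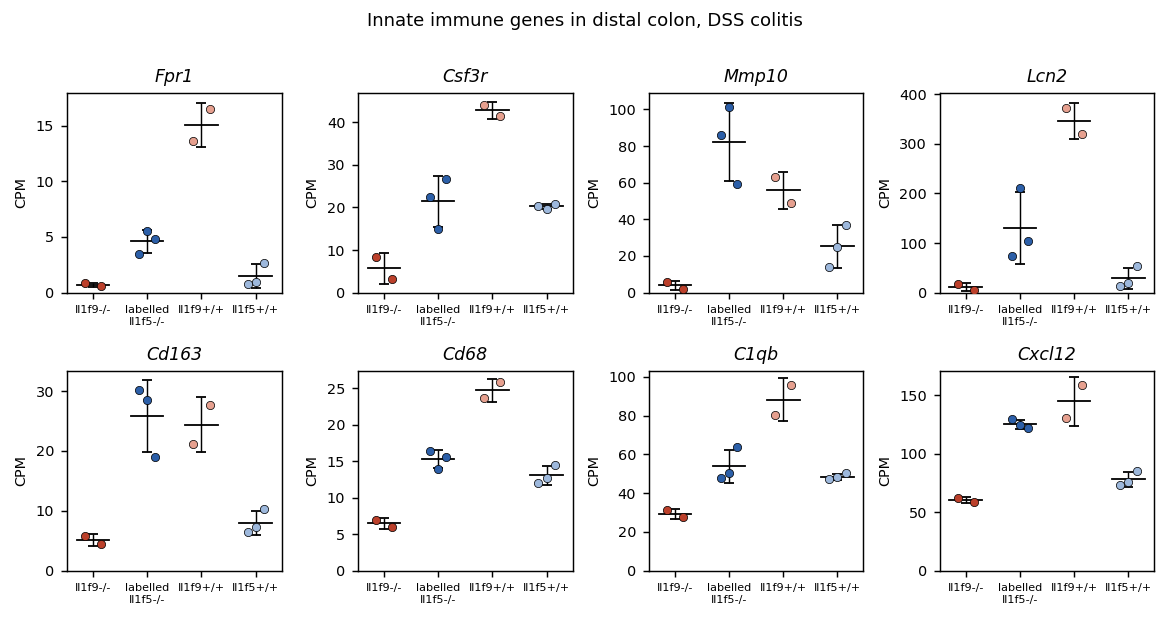
CPM of 8 innate immune genes in each colitis library of the Il1f9-/-, labelled Il1f5-/-, Il1f9+/+ and Il1f5+/+ groups (points), with group means (lines) and SD (bars). The Il1f9-/- points lie below every point labelled Il1f5-/- in all 8 genes, while Il1f9+/+ points lie above the Il1f5+/+ points. Genes here were picked among called ones, so the gap between knockout groups goes with that choice.

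Cytokine and chemokine genes were lower where they differed. The cytokine list also holds the enzymes Ptgs2, Ptges and Nos2. Of its 22 tested genes 7 were lower and 0 higher (median -1.30), with Ptges and Nos2 among the 7. Ptges is counted again with the prostaglandin genes. Of 29 chemokine genes 9 were lower and 0 higher (median -0.72). Csf1, the macrophage growth factor, had 19.3 and 12.3 CPM in Il1f9-/- colons, against 35.2, 31.7 and 27.8 CPM in the libraries labelled Il1f5-/- (log2 fold change -1.0 ± 0.19, adjusted p = 0.00568). Tnf had 3.98 and 5.37 CPM in Il1f9-/- colons, against 6.99, 9.06 and 10.5 CPM in the libraries labelled Il1f5-/- (log2 fold change -0.91 ± 0.24, adjusted p = 0.0222). Il19, a cytokine of the IL-10 family, had 0.241 and 0 CPM in Il1f9-/- colons, against 0.975, 1.25 and 1.69 CPM in the libraries labelled Il1f5-/- (log2 fold change -3.47 ± 0.83, adjusted p = 0.0143), which rests on few reads. Cxcl12, a stromal chemokine that retains CXCR4-bearing cells, had 61.98 and 58.3 CPM in Il1f9-/- colons, against 129, 124 and 122 CPM in the libraries labelled Il1f5-/- (log2 fold change -1.06 ± 0.11, adjusted p = 0.00095), the steadiest of the chemokines, with a call in every refit. The monocyte and eosinophil attractants Ccl8, Ccl9 and Ccl11 were lower, at -0.76 ± 0.15, -0.69 ± 0.14 and -1.91 ± 0.34 on the log2 scale (adjusted p = 0.00702, 0.00743 and 0.00728). Of the IL-17 and IL-22 list 4 of 12 were lower and 0 higher (median -0.38). Stat3, the transcription factor downstream of IL-22 and IL-6, had 218 and 187 CPM in Il1f9-/- colons, against 341, 334 and 283 CPM in the libraries labelled Il1f5-/- (log2 fold change -0.66 ± 0.12, adjusted p = 0.00506), and its feedback inhibitor Socs3 was lower, at -1.12 ± 0.29 on the log2 scale (adjusted p = 0.0268). Il17re, a receptor chain of epithelium, was lower, at -0.42 ± 0.14 (adjusted p = 0.0471). Il17a had 1 and 0 counts in Il1f9-/- colons, against 3, 33 and 19 counts in the libraries labelled Il1f5-/-, 35.5-fold lower with a 95% exact counting interval of 6.11 to 1430. In the cytokine list, 7 lower became 0 without Il1f9-/- replicate 2 and 2 without Il1f9-/- replicate 1. Among chemokines, 9 lower became 1 without Il1f9-/- replicate 2 and 4 without Il1f9-/- replicate 1. In the IL-17 and IL-22 list, 4 lower became 0 without Il1f9-/- replicate 2 and 2 without Il1f9-/- replicate 1. The threshold was missed for Csf1, Il19, Ccl8, Ccl9, Ccl11 and Stat3 without Il1f9-/- replicate 2 (adjusted p 0.0556 to 0.111), and for Il17a without Il1f9-/- replicates 1 or 2 (adjusted p 0.057 to 0.128). Refitting ended the call for Socs3 without Il1f9-/- replicate 2 or Il1f9+/+ replicate 1 (adjusted p 0.0509 to 0.157), and for Tnf without Il1f9-/- replicates 1 or 2 or labelled Il1f5-/- replicate 2 (adjusted p 0.0515 to 0.158). Losses on refitting were found for Il17re without Il1f9-/- replicates 1 or 2, labelled Il1f5-/- replicates 1 or 2 or Il1f5+/+ replicates 1, 2 or 3 (adjusted p 0.0652 to 0.262). The log2 fold change was -7.66 without Il1f9-/- replicate 1 for Il19.

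In the rest of the IL-1 family 5 of 17 genes were lower and 1 higher (median -0.60). Il1rl1, which encodes the IL-33 receptor ST2, had 24.7 and 21.5 CPM in Il1f9-/- colons, against 95.3, 116 and 85.6 CPM in the libraries labelled Il1f5-/- (log2 fold change -2.10 ± 0.28, adjusted p = 0.00295). The libraries labelled Il1f5-/- lay above all others, as the wild types had 34.05 and 31.6 CPM in Il1f9+/+ and 18.8, 30.2 and 39.3 CPM in Il1f5+/+. Irak3, an inhibitor of IL-1 and Toll-like receptor signalling, was lower, at -1.19 ± 0.18 on the log2 scale (adjusted p = 0.00271), and Il18rap, a chain of the IL-18 receptor, at -1.51 ± 0.28 (adjusted p = 0.00543). Il18 itself, an epithelial cytokine, was the member that was higher, with 34.4 and 39.7 CPM in Il1f9-/- colons, against 24.5, 19.97 and 21.3 CPM in the libraries labelled Il1f5-/- (log2 fold change 0.76 ± 0.17, adjusted p = 0.0116). The counts moved as follows: 5 lower became 2 without Il1f9-/- replicate 2; 1 higher became 0 without Il1f9-/- replicate 2. No call remained for Il18rap and Il18 without Il1f9-/- replicate 2 (adjusted p 0.065 to 0.116).

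NF-kB regulators and targets gave 4 lower and 1 higher of 17 (median -0.34). Tnfaip2, a TNF-induced gene, had 21.04 and 17.2 CPM in Il1f9-/- colons, against 44.8, 54.2 and 41.95 CPM in the libraries labelled Il1f5-/- (log2 fold change -1.30 ± 0.19, adjusted p = 0.00261), and Vcam1, an endothelial adhesion molecule for leukocytes, had 16.5 and 14.7 CPM in Il1f9-/- colons, against 35.4, 42.5 and 31.9 CPM in the libraries labelled Il1f5-/- (log2 fold change -1.23 ± 0.19, adjusted p = 0.00295). Both calls held in every refit. Nfkb1, the p105 precursor subunit, was lower, at -0.36 ± 0.09 on the log2 scale (adjusted p = 0.0134). Nfkbiz, a nuclear coactivator that IL-36 and IL-17 induce in skin cells, was higher, with 149 and 146 CPM in Il1f9-/- colons, against 112, 111 and 103 CPM in the libraries labelled Il1f5-/- (log2 fold change 0.44 ± 0.10, adjusted p = 0.0101). In these counts, 4 lower became 2 without Il1f9-/- replicates 1 or 2; 1 higher became 0 without Il1f9-/- replicates 1 or 2. Calls did not hold for Nfkb1 and Nfkbiz without Il1f9-/- replicates 1 or 2 (adjusted p 0.055 to 0.117).

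Among 25 tested antimicrobial genes 4 were lower and 0 higher (median -0.23). They were Duox2, an epithelial oxidase (-0.58 ± 0.12, adjusted p = 0.00687), the myeloid lysozyme Lyz2 (-0.72 ± 0.17, adjusted p = 0.0141), and Lcn2 and S100a8, given above. The remaining 21 members did not pass, and the list's sum was 14217 to 20127 CPM in Il1f9-/- colons and 15396 to 17747 CPM in the libraries labelled Il1f5-/-. The inflammasome list gave 4 lower and 2 higher of 18, and its median of -0.05 took the other sign, 0.0969, with the member at 0 in one group set at 3 counts. Pycard, the adaptor ASC, had 119.8 and 114 CPM in Il1f9-/- colons, against 54.9, 79.3 and 70.8 CPM in the libraries labelled Il1f5-/- (log2 fold change 0.77 ± 0.13, adjusted p = 0.00386). Naip6, a sensor of bacterial proteins with near-identical copies that can share reads, was lower, at -0.67 ± 0.10 on the log2 scale (adjusted p = 0.00281), and Mefv, pyrin, at -1.12 ± 0.30 (adjusted p = 0.0219). Nlrp1b, another sensor, had 0.422 and 0.355 CPM in Il1f9-/- colons, against 1.52, 1.1 and 1.52 CPM in the libraries labelled Il1f5-/- (log2 fold change -1.81 ± 0.30, adjusted p = 0.00328). All 5 knockout libraries were far below the wild types in this gene, at 19.6 and 16.00 CPM in Il1f9+/+ and 15.1, 14.7 and 17.6 CPM in Il1f5+/+. For antimicrobial genes, 4 lower became 0 without Il1f9-/- replicate 2 and 2 without Il1f9-/- replicate 1 or labelled Il1f5-/- replicate 2; 0 higher became 2 without labelled Il1f5-/- replicate 3. For the inflammasome list, 4 lower became 2 without Il1f9-/- replicates 1 or 2 or labelled Il1f5-/- replicate 1; 2 higher became 1 without Il1f9-/- replicates 1 or 2, labelled Il1f5-/- replicates 1 or 2 or Il1f5+/+ replicates 2 or 3. Adjusted p exceeded 0.05 for Duox2 without Il1f9-/- replicate 2 (adjusted p = 0.0612), and for Lyz2 without Il1f9-/- replicates 1 or 2 (adjusted p 0.0567 to 0.116). Calls also ended for Mefv without Il1f9-/- replicates 1 or 2 or labelled Il1f5-/- replicate 1 (adjusted p 0.051 to 0.176), and for S100a8 without Il1f9-/- replicates 1 or 2 or labelled Il1f5-/- replicates 2 or 3 (adjusted p 0.0517 to 0.19). Refits lost the call for Lcn2 without Il1f9-/- replicates 1 or 2, labelled Il1f5-/- replicate 2 or Il1f9+/+ replicates 1 or 2 (adjusted p 0.0523 to 0.172).

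Interferon-response genes hardly contributed calls. Of 44 tested 1 was higher, the transcription factor Irf1 with 224 and 223 CPM in Il1f9-/- colons, against 157, 134 and 178 CPM in the libraries labelled Il1f5-/- (log2 fold change 0.52 ± 0.13, adjusted p = 0.0184), and 1 was lower, the GTPase Gbp9 (-0.93 ± 0.26, adjusted p = 0.0326). The list's sum was 2370.1 to 3016 CPM in Il1f9-/- colons and 1952 to 5304 CPM in the libraries labelled Il1f5-/-, a range that covers both Il1f9-/- colons. Of 8 Schlafen genes 1 was lower, Slfn1, a gene tied to lymphocyte quiescence, with 3.01 and 1.27 CPM in Il1f9-/- colons, against 7.48, 6.87 and 11.95 CPM in the libraries labelled Il1f5-/- (log2 fold change -2.05 ± 0.39, adjusted p = 0.00693). Antigen presentation gave 4 higher and 0 lower of 24 (median 0.16), all of the MHC class II pathway. H2-Ab1, a class II chain, had 229 and 247 CPM in Il1f9-/- colons, against 119, 83.3 and 181 CPM in the libraries labelled Il1f5-/- (log2 fold change 0.90 ± 0.25, adjusted p = 0.0365), with replicate 3 labelled Il1f5-/- nearest to the Il1f9-/- colons. H2-Aa, H2-DMa and the invariant chain Cd74 were higher by 0.77 ± 0.23, 0.91 ± 0.21 and 0.96 ± 0.28 on the log2 scale (adjusted p = 0.0453, 0.0138 and 0.0425). Counts over the whole antigen presentation list, class I genes included, turned on single libraries. Without labelled Il1f5-/- replicate 2, 0 lower became 3. The 4 higher became 0 without labelled Il1f5-/- replicate 1 and 10 without labelled Il1f5-/- replicate 3. They became 1 without Il1f5+/+ replicates 1 or 3 and 2 without Il1f5+/+ replicate 2. The count of 4 also fell without either Il1f9-/- or either Il1f9+/+ library, refits that leave 1 library in a group. In the interferon list, 1 lower became 0 without Il1f9-/- replicate 2 or labelled Il1f5-/- replicates 1 or 3, 2 without Il1f5+/+ replicate 3 and 3 without labelled Il1f5-/- replicate 2; 1 higher became 0 without Il1f9-/- replicates 1 or 2 or labelled Il1f5-/- replicate 2 and 4 without labelled Il1f5-/- replicate 3. In the Schlafen list, 1 lower became 0 without Il1f9-/- replicate 2 and 2 without labelled Il1f5-/- replicate 2. Calls failed in refits for Slfn1 without Il1f9-/- replicate 2 (adjusted p = 0.0558), and for H2-DMa without Il1f9-/- replicates 1 or 2 or labelled Il1f5-/- replicate 1 (adjusted p 0.0518 to 0.0938). Leave-one-out refits ended calls for Irf1 without Il1f9-/- replicates 1 or 2 or labelled Il1f5-/- replicate 2 (adjusted p 0.0543 to 0.113), and for Gbp9 without Il1f9-/- replicates 1 or 2 or labelled Il1f5-/- replicates 1 or 3 (adjusted p 0.0556 to 0.205). Single refits cost the call for Cd74 without Il1f9-/- replicates 1 or 2, labelled Il1f5-/- replicate 1, Il1f9+/+ replicates 1 or 2 or Il1f5+/+ replicates 1 or 3 (adjusted p 0.0558 to 0.185), and for H2-Ab1 without Il1f9-/- replicates 1 or 2, labelled Il1f5-/- replicate 1, Il1f9+/+ replicates 1 or 2 or Il1f5+/+ replicates 1, 2 or 3 (adjusted p 0.0515 to 0.176). Also lost in refits were calls for H2-Aa without Il1f9-/- replicates 1 or 2, labelled Il1f5-/- replicates 1 or 2, Il1f9+/+ replicates 1 or 2 or Il1f5+/+ replicates 1, 2 or 3 (adjusted p 0.0521 to 0.197).

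Lymphocyte and mast cell lists gave 1 to 4 calls each, beside 10.1% of all genes lower and 11.2% higher. Of 24 T and NK cell markers 2 were lower and 0 higher (median -0.30), namely Il2ra, the high-affinity IL-2 receptor chain (-1.50 ± 0.41, adjusted p = 0.0249), and the checkpoint receptor Ctla4 (-1.08 ± 0.34, adjusted p = 0.0453). Of 23 B and plasma cell markers 4 were higher and 0 lower (median 0.54). Cr2, the complement receptor of follicular B cells, had 7.24 and 6.33 CPM in Il1f9-/- colons, against 2.33, 1.49 and 3.44 CPM in the libraries labelled Il1f5-/- (log2 fold change 1.49 ± 0.33, adjusted p = 0.0104), and the B cell factor Pax5, the receptor chain Cd79a and Ighd were higher by 1.11 ± 0.27, 1.0 ± 0.31 and 1.22 ± 0.33 on the log2 scale (adjusted p = 0.0153, 0.0458 and 0.0262). The list's sum was 6247 to 6343 CPM in Il1f9-/- colons and 3536 to 5651 CPM in the libraries labelled Il1f5-/-, without overlap. Of 9 tested mast cell and eosinophil markers 1 was higher, the chymase Cma1 (1.64 ± 0.48, adjusted p = 0.0334), and 0 lower. Erythrocyte markers gave 3 lower and 0 higher of 6 (median -2.02): Alas2, the first enzyme of erythroid haem synthesis (-2.67 ± 0.53, adjusted p = 0.00697), the globin Hbb-bt (-2.10 ± 0.61, adjusted p = 0.0368), and the anion exchanger Slc4a1, with 0 and 0 counts in Il1f9-/- colons against 5, 20 and 18 counts in the libraries labelled Il1f5-/-, at least 9.25-fold lower with the floor over the group. The summed erythrocyte transcripts were at 16.4 to 36.7 CPM in Il1f9-/- colons and 50.9 to 134 CPM in the libraries labelled Il1f5-/-. The amount of blood in the tissue was not measured, and its part in the neutrophil result was not tested. For T and NK cells, 2 lower became 0 without Il1f9-/- replicates 1 or 2 or labelled Il1f5-/- replicate 1 and 1 without labelled Il1f5-/- replicates 2 or 3 or Il1f5+/+ replicates 1, 2 or 3. For B cells, 4 higher became 0 without Il1f9-/- replicate 1, 1 without Il1f9-/- replicate 2 and 2 without labelled Il1f5-/- replicates 1 or 2. For erythrocytes, 3 lower became 0 without Il1f9-/- replicate 2, 1 without labelled Il1f5-/- replicates 2 or 3 and 5 without Il1f5+/+ replicate 3. For mast cells, 0 lower became 4 without labelled Il1f5-/- replicate 3; 1 higher became 0 without Il1f9-/- replicates 1 or 2, labelled Il1f5-/- replicates 1, 2 or 3 or Il1f5+/+ replicate 2. Also lost in refits were calls for Pax5 without Il1f9-/- replicate 1 (adjusted p = 0.144), and for Alas2 without Il1f9-/- replicate 2 (adjusted p = 0.0787). The threshold was missed for Cr2 and Slc4a1 without Il1f9-/- replicates 1 or 2 (adjusted p 0.0563 to 0.152), and for Il2ra without Il1f9-/- replicates 1 or 2 or labelled Il1f5-/- replicate 1 (adjusted p 0.0741 to 0.125). Refitting ended the call for Ighd without Il1f9-/- replicates 1 or 2 or labelled Il1f5-/- replicates 1 or 2 (adjusted p 0.0586 to 0.172), and for Hbb-bt without Il1f9-/- replicate 2, labelled Il1f5-/- replicates 2 or 3 or Il1f5+/+ replicate 2 (adjusted p 0.0553 to 0.209). Losses on refitting were found for Cma1 without Il1f9-/- replicates 1 or 2, labelled Il1f5-/- replicates 1, 2 or 3 or Il1f5+/+ replicate 2 (adjusted p 0.05 to 0.193), and for Ctla4 and Cd79a without Il1f9-/- replicates 1 or 2, labelled Il1f5-/- replicates 1, 2 or 3 or Il1f5+/+ replicates 1, 2 or 3 (adjusted p 0.0509 to 0.211).

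Of 35 tested collagen and matrix genes 25 were lower and 0 higher (median -0.89). Col18a1, the basement membrane collagen that yields endostatin, had 73.98 and 51.6 CPM in Il1f9-/- colons, against 262, 302 and 195 CPM in the libraries labelled Il1f5-/- (log2 fold change -2.01 ± 0.23, adjusted p = 0.00149). The small proteoglycan Dcn, decorin, had 237 and 157 CPM in Il1f9-/- colons, against 389, 485 and 437 CPM in the libraries labelled Il1f5-/- (log2 fold change -1.15 ± 0.18, adjusted p = 0.00305). Its relative Bgn, biglycan, was lower, at -1.03 ± 0.14 on the log2 scale (adjusted p = 0.00187) and Col15a1, a basement membrane collagen, at -0.88 ± 0.15 (adjusted p = 0.00361). In these 4 genes the calls held in every refit. Summed levels were 3546 to 4772 CPM in Il1f9-/- colons, against 7022 to 8477 CPM in the libraries labelled Il1f5-/-. In the wild types 14 of the 35 were higher in Il1f9+/+ than in Il1f5+/+ and 0 lower (median 0.58), and the sums were 5886 to 8503 CPM in Il1f9+/+ and 4275 to 4649 CPM in Il1f5+/+. The count of 25 lower became 8 without Il1f9-/- replicate 2.

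Proteases of the matrix and their inhibitors gave 12 lower and 0 higher of 25 (median -1.10). Mmp2, gelatinase A of fibroblasts, had 65.5 and 58.3 CPM in Il1f9-/- colons, against 184, 213 and 156 CPM in the libraries labelled Il1f5-/- (log2 fold change -1.58 ± 0.16, adjusted p = 0.00095). Timp2, an inhibitor of these enzymes, and Adamts2, which trims procollagen, were lower, at -0.94 ± 0.15 and -1.04 ± 0.17 on the log2 scale (adjusted p = 0.00305 and 0.00306). Of 27 integrins and laminins 12 were lower and 0 higher (median -0.40). The laminin chains Lama1, Lamb1, Lamc1 and Lama4 were lower, at -1.51 ± 0.24, -0.95 ± 0.16, -0.92 ± 0.17 and -1.07 ± 0.20 (adjusted p = 0.00295, 0.00361, 0.00503 and 0.00568). Among proteases, 12 lower became 4 without Il1f9-/- replicate 2 and 7 without labelled Il1f5-/- replicate 2. Among integrins and laminins, 12 lower became 2 without Il1f9-/- replicate 2 and 7 without Il1f9-/- replicate 1. Losses on refitting were found for Lamc1 and Lama4 without Il1f9-/- replicate 2 (adjusted p 0.0554 to 0.0591).

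Endothelial markers had the largest called share of any list, 17 of 19 lower and 0 higher (median -1.08). Vwf, von Willebrand factor, had 21.5 and 16.6 CPM in Il1f9-/- colons, against 63.8, 69.4 and 53.4 CPM in the libraries labelled Il1f5-/- (log2 fold change -1.71 ± 0.17, adjusted p = 0.00095). Plvap, the diaphragm protein of fenestrated vessels, had 61.98 and 52.3 CPM in Il1f9-/- colons, against 106, 105 and 92.7 CPM in the libraries labelled Il1f5-/- (log2 fold change -0.82 ± 0.10, adjusted p = 0.00149). Cdh5, the junction protein VE-cadherin, and Lyve1, a lymphatic marker, were lower, at -1.39 ± 0.20 and -0.94 ± 0.13 on the log2 scale (adjusted p = 0.00225 and 0.00213). All 4 calls held in every refit. The sum of the list was 264 to 307 CPM in Il1f9-/- colons, against 506 to 692 CPM in the libraries labelled Il1f5-/-, and 459 to 580.2 CPM in Il1f9+/+ against 308 to 357 CPM in Il1f5+/+. Fibroblast markers gave 8 lower and 1 higher of 16 (median -0.66). Pdgfra, the PDGF receptor of mucosal fibroblasts, had 63.1 and 54.9 CPM in Il1f9-/- colons, against 117, 131 and 100.3 CPM in the libraries labelled Il1f5-/- (log2 fold change -0.98 ± 0.14, adjusted p = 0.00199). Pdgfrb, the receptor of pericytes and fibroblasts, was lower, at -1.36 ± 0.22 (adjusted p = 0.00345) and the glycoprotein Pdpn, at -1.01 ± 0.21 (adjusted p = 0.00847). The tetraspanin Cd81 was the member that was higher (0.45 ± 0.10, adjusted p = 0.00977). The endothelial count of 17 lower became 7 without Il1f9-/- replicate 2. For fibroblasts, 8 lower became 2 without Il1f9-/- replicate 2; 1 higher became 0 without Il1f9-/- replicates 1 or 2. A refit ended the call for Pdpn without Il1f9-/- replicate 2 (adjusted p = 0.0913), and for Cd81 without Il1f9-/- replicates 1 or 2 (adjusted p 0.0543 to 0.0861).

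Smooth muscle, by contrast, gave 0 calls among 18 markers in edgeR's test and 0 in DESeq2's Wald test (median 0.06). At an unadjusted p under 0.05, 1 was higher and 2 were lower. The list's sum was 7372 to 8293 CPM in Il1f9-/- colons and 6192 to 8489.5 CPM in the libraries labelled Il1f5-/-, above the wild types at 3138 to 4905 CPM in Il1f9+/+ and 3827 to 4297 CPM in Il1f5+/+. Of 18 enteric neuron and glia markers 1 was lower, the receptor Ret (-0.84 ± 0.18, adjusted p = 0.00896), and of 12 adipocyte markers 2 were lower, the lipase Lipe (-0.59 ± 0.18, adjusted p = 0.0394) and adipsin, Cfd (-1.41 ± 0.40, adjusted p = 0.0436), with 0 higher in either list. Their medians were -0.66 and -0.66. Among Wnt ligands and regulators 9 of 29 were lower and 0 higher (median -0.61). Fzd1, a Wnt receptor, had 38.2 and 42.2 CPM in Il1f9-/- colons, against 78.3, 98.2 and 73.5 CPM in the libraries labelled Il1f5-/- (log2 fold change -1.05 ± 0.15, adjusted p = 0.00199), and Sfrp1, a secreted antagonist, had 54.02 and 33.8 CPM in Il1f9-/- colons, against 95.2, 82.97 and 94.1 CPM in the libraries labelled Il1f5-/- (log2 fold change -1.05 ± 0.16, adjusted p = 0.00295). The ligand Wnt2b and the Dickkopf relative Dkk3 were lower, at -1.43 ± 0.28 and -0.93 ± 0.18 on the log2 scale (adjusted p = 0.00682 and 0.00713). EGF receptor ligands gave 3 lower and 1 higher of 11 (median -0.22). Nrg1, neuregulin 1 of the stroma, had 12.7 and 8.77 CPM in Il1f9-/- colons, against 48.01, 86.6 and 35.02 CPM in the libraries labelled Il1f5-/- (log2 fold change -2.40 ± 0.44, adjusted p = 0.00943). Hbegf was the member that was higher, with 43.9 and 53.97 CPM in Il1f9-/- colons, against 26.01, 29.03 and 33.4 CPM in the libraries labelled Il1f5-/- (log2 fold change 0.73 ± 0.14, adjusted p = 0.0056), while Egfr itself and Tgfa were lower, at -0.42 ± 0.11 and -0.31 ± 0.10 (adjusted p = 0.0196 and 0.0441). In the muscle list, 0 lower became 3 without labelled Il1f5-/- replicate 3; 0 higher became 2 without Il1f9+/+ replicates 1 or 2. In the neural list, 1 lower became 0 without Il1f9-/- replicate 2 and 8 without labelled Il1f5-/- replicate 3. In the adipocyte list, 2 lower became 0 without Il1f9-/- replicates 1 or 2, labelled Il1f5-/- replicates 1 or 2 or Il1f5+/+ replicate 2, 1 without Il1f5+/+ replicate 1, 4 without Il1f5+/+ replicate 3 and 5 without labelled Il1f5-/- replicate 3. In the Wnt list, 9 lower became 3 without Il1f9-/- replicate 2. In the EGF list, 3 lower became 0 without Il1f9-/- replicate 2; 1 higher became 0 without Il1f9-/- replicate 2. Omitting a library ended calls for Wnt2b without Il1f9-/- replicate 1 (adjusted p = 0.0532), and for Ret, Dkk3, Nrg1 and Hbegf without Il1f9-/- replicate 2 (adjusted p 0.0668 to 0.0965). Adjusted p exceeded 0.05 for Egfr without Il1f9-/- replicate 2 or labelled Il1f5-/- replicate 2 (adjusted p 0.0549 to 0.184), and for Lipe without Il1f9-/- replicates 1 or 2, labelled Il1f5-/- replicates 1 or 2 or Il1f5+/+ replicate 2 (adjusted p 0.0508 to 0.209). Calls also ended for Cfd without Il1f9-/- replicates 1 or 2, labelled Il1f5-/- replicates 1 or 2 or Il1f5+/+ replicates 1 or 2 (adjusted p 0.0585 to 0.2), and for Tgfa without Il1f9-/- replicates 1 or 2, labelled Il1f5-/- replicate 1 or Il1f5+/+ replicates 1, 2 or 3 (adjusted p 0.0553 to 0.168).

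**Figure D3:**
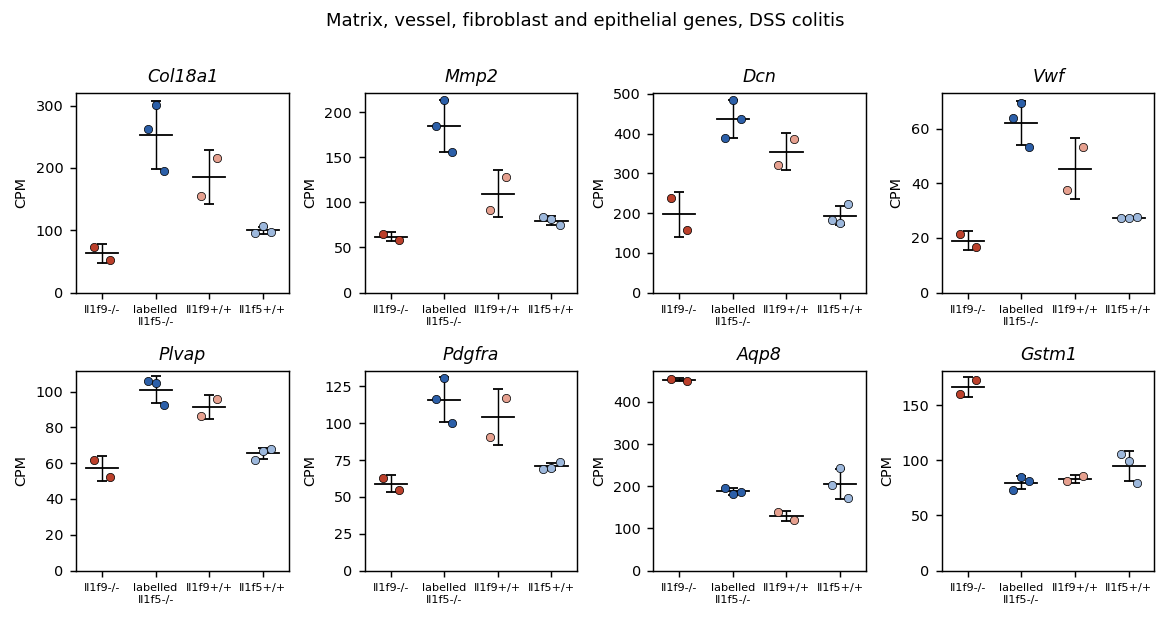
CPM of 8 matrix, vessel, fibroblast and epithelial genes in each colitis library of the Il1f9-/-, labelled Il1f5-/-, Il1f9+/+ and Il1f5+/+ groups (points), with group means (lines) and SD (bars). Col18a1, Mmp2, Dcn, Vwf, Plvap and Pdgfra are lower in both Il1f9-/- colons than in every library labelled Il1f5-/-, and Aqp8 and Gstm1 are higher. All were picked among called genes, so the gap between knockout groups goes with that choice.

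Epithelial genes ran the other way in part. Of 27 absorptive colonocyte markers 8 were higher and 4 lower (median 0.29). Aqp8, the water channel of surface colonocytes, had 455 and 450.0 CPM in Il1f9-/- colons, against 195, 181 and 187 CPM in the libraries labelled Il1f5-/- (log2 fold change 1.27 ± 0.13, adjusted p = 0.00095). Slc16a1, a carrier of butyrate and lactate, had 396 and 402 CPM in Il1f9-/- colons, against 181, 216 and 218 CPM in the libraries labelled Il1f5-/- (log2 fold change 0.96 ± 0.11, adjusted p = 0.0011). The carbonic anhydrase Car2 and the chloride exchanger Slc26a3 were higher by 0.79 ± 0.15 and 0.76 ± 0.16 on the log2 scale (adjusted p = 0.00513 and 0.00833). The 4 that were lower were transporters and channels, Slc9a3, Scnn1b, Scnn1g and Best2, named after their values were seen. Goblet cell markers gave 2 higher and 4 lower of 16 (median -0.17). Agr2, which folds mucin, had 715 and 993 CPM in Il1f9-/- colons, against 389.8, 375 and 417 CPM in the libraries labelled Il1f5-/- (log2 fold change 1.12 ± 0.21, adjusted p = 0.00653), and the secretory factor Creb3l1 was higher by 0.61 ± 0.14 (adjusted p = 0.0103), while Sytl2 and Ccl6 were lower, at -0.71 ± 0.19 and -0.32 ± 0.09 (adjusted p = 0.0248 and 0.0274). The 7 tested membrane and gastric-type mucins gave 0 calls in edgeR's test and 0 in DESeq2's Wald test (median -0.29), with 1 higher and 1 lower at an unadjusted p under 0.05 and Muc4 nearest (-0.30 ± 0.11, adjusted p = 0.0673). In the absorptive list, 4 lower became 0 without Il1f9-/- replicate 2, 1 without Il1f9-/- replicate 1 and 2 without labelled Il1f5-/- replicate 2; 8 higher became 2 without Il1f9-/- replicate 2. In the goblet list, 4 lower became 0 without Il1f9-/- replicates 1 or 2 or labelled Il1f5-/- replicate 2, 1 without labelled Il1f5-/- replicate 1 and 2 without Il1f9+/+ replicates 1 or 2 or Il1f5+/+ replicates 1 or 2; 2 higher became 0 without Il1f9-/- replicate 2. Refits lost the call for Car2, Slc26a3, Agr2 and Creb3l1 without Il1f9-/- replicate 2 (adjusted p 0.0725 to 0.125), and for Ccl6 without Il1f9-/- replicates 1 or 2 or labelled Il1f5-/- replicate 2 (adjusted p 0.0691 to 0.149). Calls failed in refits for Sytl2 without Il1f9-/- replicates 1 or 2 or labelled Il1f5-/- replicates 1 or 2 (adjusted p 0.055 to 0.164).

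Tuft cell markers gave 6 lower and 0 higher of 11 (median -0.79). Alox5, which starts leukotriene synthesis, had 3.2 and 3.75 CPM in Il1f9-/- colons, against 8.02, 7.82 and 7.05 CPM in the libraries labelled Il1f5-/- (log2 fold change -1.13 ± 0.20, adjusted p = 0.0044), and its partner Alox5ap and the doublecortin-like kinase Dclk1 were lower, at -1.96 ± 0.46 and -0.91 ± 0.21 on the log2 scale (adjusted p = 0.0196 and 0.0127). Alox5 and Alox5ap are also expressed by myeloid cells. Enteroendocrine markers gave 2 higher and 1 lower of 19 (median -0.15). Neurog3, the factor that commits endocrine progenitors, had 1.45 and 1.88 CPM in Il1f9-/- colons, against 0, 0 and 0.226 CPM in the libraries labelled Il1f5-/- (log2 fold change 4.42 ± 0.71, adjusted p = 0.00305). Replicates 1 and 2 labelled Il1f5-/- had 0 counts, so this fold change depends on the prior count of the fit. The wild types had 1.39 and 0.956 CPM in Il1f9+/+ and 1.29, 1.66 and 1.2 CPM in Il1f5+/+, so the libraries labelled Il1f5-/- lay below all other groups. The endocrine factor Insm1 was higher by 0.87 ± 0.25 (adjusted p = 0.0308) and Tph1, the serotonin enzyme, lower, at -0.55 ± 0.16 (adjusted p = 0.0313). Stem and crypt markers gave 2 higher and 2 lower of 17 (median -0.21), namely Sox9 (0.57 ± 0.13, adjusted p = 0.0115) and the ephrin receptor Ephb3 (0.74 ± 0.21, adjusted p = 0.0321) against Prox1 (-1.02 ± 0.28, adjusted p = 0.0257) and the Wnt inhibitor Nkd1 (-0.46 ± 0.13, adjusted p = 0.0301). Prox1 also marks lymphatic endothelium. Squamous markers of the anal canal gave 5 higher and 1 lower of 12 tested, of 24 in the list (median 0.71). Sprr1a, a cornified envelope protein, had 39.9 and 48.4 CPM in Il1f9-/- colons, against 15.8, 15.04 and 19.1 CPM in the libraries labelled Il1f5-/- (log2 fold change 1.41 ± 0.18, adjusted p = 0.00145), and Ly6d, Krt17 and Krt13 were higher by 1.25 ± 0.21, 1.92 ± 0.37 and 3.23 ± 0.69 (adjusted p = 0.00334, 0.00568 and 0.0087). The summed squamous level was low in every library, 73.02 to 77.5 CPM in Il1f9-/- colons and 37.8 to 38.04 CPM in the libraries labelled Il1f5-/-, and the part of anal tissue in other differences was not tested. For tuft cells, 6 lower became 1 without Il1f9-/- replicate 2 and 3 without Il1f9-/- replicate 1. For enteroendocrine cells, 1 lower became 0 without Il1f9-/- replicates 1 or 2, labelled Il1f5-/- replicate 1 or Il1f5+/+ replicate 1, 3 without Il1f9+/+ replicates 1 or 2 and 6 without labelled Il1f5-/- replicate 3; 2 higher became 1 without Il1f9-/- replicate 2 or labelled Il1f5-/- replicates 2 or 3 and 5 without labelled Il1f5-/- replicate 1. For stem cells, 2 lower became 0 without Il1f9-/- replicates 1 or 2 and 1 without labelled Il1f5-/- replicate 1; 2 higher became 0 without Il1f9-/- replicate 2, 1 without labelled Il1f5-/- replicates 1 or 2 or Il1f9+/+ replicate 2 and 5 without labelled Il1f5-/- replicate 3. For squamous markers, 1 lower became 0 without Il1f9-/- replicates 1 or 2 or labelled Il1f5-/- replicates 1 or 2; 5 higher became 3 without Il1f9-/- replicate 2. Single refits cost the call for Alox5ap, Sox9 and Krt13 without Il1f9-/- replicate 2 (adjusted p 0.083 to 0.169), and for Dclk1 without Il1f9-/- replicates 1 or 2 (adjusted p 0.0579 to 0.106). Also lost in refits were calls for Prox1 and Nkd1 without Il1f9-/- replicates 1 or 2 or labelled Il1f5-/- replicates 1 or 2 (adjusted p 0.0542 to 0.217), and for Ephb3 without Il1f9-/- replicate 2, labelled Il1f5-/- replicates 1 or 2 or Il1f9+/+ replicate 2 (adjusted p 0.0525 to 0.278). The threshold was missed for Insm1 without Il1f9-/- replicates 1 or 2 or labelled Il1f5-/- replicates 2 or 3 (adjusted p 0.054 to 0.236), and for Tph1 without Il1f9-/- replicates 1 or 2, labelled Il1f5-/- replicates 1 or 2 or Il1f5+/+ replicate 1 (adjusted p 0.0504 to 0.184). Log2 fold changes moved to 7.99 without labelled Il1f5-/- replicate 3 for Neurog3, 0.36 without Il1f9-/- replicate 2 for Sox9 and 0.47 without Il1f9-/- replicate 2 for Ephb3.

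Tight junction genes gave 8 higher and 4 lower of 17 (median 0.37). Cldn8, a sealing claudin of the distal colon, had 44.6 and 60.2 CPM in Il1f9-/- colons, against 15.8, 17.7 and 20.9 CPM in the libraries labelled Il1f5-/- (log2 fold change 1.53 ± 0.19, adjusted p = 0.00184), and Cldn23 was higher by 0.64 ± 0.14 on the log2 scale (adjusted p = 0.011), whereas the scaffold Tjp1 (ZO-1) and Cldn1 were lower, at -0.44 ± 0.09 and -1.40 ± 0.32 (adjusted p = 0.00764 and 0.012). Hox and Cdx genes gave 5 higher and 3 lower of 33 (median 0.03). The intestinal identity factors Cdx2 and Cdx1 were higher by 0.48 ± 0.11 and 0.48 ± 0.13 (adjusted p = 0.0127 and 0.022), and Hoxd8 and Hoxb3 were lower, at -0.88 ± 0.24 and -0.74 ± 0.21 (adjusted p = 0.0248 and 0.027). Hoxb13, which marks the distal end of the gut, had 15.9 and 57.3 CPM in Il1f9-/- colons, against 11.5, 4.98 and 4.62 CPM in the libraries labelled Il1f5-/-, 7.96 and 7.24 CPM in Il1f9+/+ and 53.9, 33.98 and 20.6 CPM in Il1f5+/+. For tight junctions, 4 lower became 0 without Il1f9-/- replicate 1, 1 without Il1f9-/- replicate 2 and 2 without labelled Il1f5-/- replicates 1 or 2; 8 higher became 2 without Il1f9-/- replicates 1 or 2, 4 without labelled Il1f5-/- replicate 1 and 5 without labelled Il1f5-/- replicate 2. For Hox and Cdx genes, 3 lower became 0 without Il1f9-/- replicates 1 or 2 or labelled Il1f5-/- replicate 1 and 1 without labelled Il1f5-/- replicate 2; 5 higher became 0 without Il1f9-/- replicate 2, 1 without labelled Il1f5-/- replicate 2, 2 without Il1f9-/- replicate 1 or labelled Il1f5-/- replicates 1 or 3 and 3 without Il1f9+/+ replicates 1 or 2. Refitting ended the call for Cldn23 and Tjp1 without Il1f9-/- replicate 1 (adjusted p 0.0794 to 0.103), and for Cldn1 and Cdx2 without Il1f9-/- replicates 1 or 2 (adjusted p 0.0609 to 0.1). Losses on refitting were found for Hoxb3 without Il1f9-/- replicates 1 or 2 or labelled Il1f5-/- replicate 1 (adjusted p 0.0728 to 0.18), and for Cdx1 and Hoxd8 without Il1f9-/- replicates 1 or 2 or labelled Il1f5-/- replicates 1 or 2 (adjusted p 0.052 to 0.212). No call remained for Hoxb13 without Il1f9-/- replicate 2, labelled Il1f5-/- replicates 1, 2 or 3, Il1f9+/+ replicates 1 or 2 or Il1f5+/+ replicates 2 or 3 (adjusted p 0.0506 to 0.322). Refitted log2 fold changes were 1.15 without Il1f9-/- replicate 2 for Hoxb13.

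Metabolic lists held called genes in both directions. Of 30 xenobiotic metabolism genes 13 were higher and 4 lower (median 0.50). Gstm1, a glutathione transferase, had 161 and 173 CPM in Il1f9-/- colons, against 72.98, 85.3 and 81.3 CPM in the libraries labelled Il1f5-/- (log2 fold change 1.06 ± 0.12, adjusted p = 0.000986). Ces1g, a carboxylesterase, had 72.96 and 109.7 CPM in Il1f9-/- colons, against 35.7, 49.6 and 46.3 CPM in the libraries labelled Il1f5-/- (log2 fold change 1.06 ± 0.17, adjusted p = 0.00342). The sulfotransferase Sult1a1 and the efflux pump Abcg2 were higher by 0.79 ± 0.12 and 1.12 ± 0.19 on the log2 scale (adjusted p = 0.00249 and 0.00453). All 4 calls held in every refit. In the wild types 0 of the list's genes were higher in Il1f9+/+ and 3 lower, with Gstm1 at 80.9 and 85.8 CPM in Il1f9+/+ and 106, 99.8 and 79.3 CPM in Il1f5+/+. Fatty acid oxidation and ketogenesis gave 6 higher and 1 lower of 21 (median 0.15). Fabp2, the intestinal fatty acid carrier, had 369 and 390.1 CPM in Il1f9-/- colons, against 183, 224 and 201 CPM in the libraries labelled Il1f5-/- (log2 fold change 0.90 ± 0.16, adjusted p = 0.00409), and the oxidation enzymes Hadh and Acadm were higher by 0.51 ± 0.12 and 0.50 ± 0.12 (adjusted p = 0.0135 and 0.0143). Acsl1, which activates fatty acids, was lower, at -0.56 ± 0.14 (adjusted p = 0.0172). Glycolysis and hypoxia genes gave 7 lower and 0 higher of 23 around a median of 0.02. The hypoxia targets Bnip3 and Egln3 had 11.8 and 12.6 CPM in Il1f9-/- colons, against 27.1, 32.6 and 22.2 CPM in the libraries labelled Il1f5-/- for Bnip3 (log2 fold change -1.16 ± 0.17, adjusted p = 0.00213) and a log2 fold change of -0.94 ± 0.17 for Egln3 (adjusted p = 0.00457), and Ankrd37 and the lactate exporter Slc16a3 were lower, at -1.47 ± 0.28 and -1.18 ± 0.27 (adjusted p = 0.00587 and 0.0168). For xenobiotic metabolism, 4 lower became 1 without Il1f9-/- replicate 2 and 2 without Il1f9-/- replicate 1; 13 higher became 4 without Il1f9-/- replicate 2 and 7 without Il1f9-/- replicate 1. For fatty acid oxidation, 1 lower became 0 without Il1f9-/- replicates 1 or 2 or labelled Il1f5-/- replicate 1, 2 without Il1f9+/+ replicates 1 or 2 or Il1f5+/+ replicate 1, 3 without Il1f5+/+ replicate 3 and 5 without labelled Il1f5-/- replicate 3; 6 higher became 1 without Il1f9-/- replicates 1 or 2 and 3 without labelled Il1f5-/- replicate 1. For glycolysis and hypoxia, 7 lower became 3 without Il1f9-/- replicates 1 or 2 and 4 without labelled Il1f5-/- replicate 2; 0 higher became 2 without labelled Il1f5-/- replicate 3 and 3 without Il1f9+/+ replicates 1 or 2. The call ended for Ankrd37 without Il1f9-/- replicate 2 (adjusted p = 0.0527), and for Hadh, Acadm and Slc16a3 without Il1f9-/- replicates 1 or 2 (adjusted p 0.0518 to 0.13). A refit ended the call for Acsl1 without Il1f9-/- replicates 1 or 2 or labelled Il1f5-/- replicate 1 (adjusted p 0.0527 to 0.0969).

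Prostaglandin genes differed in both directions. Of 17 tested 6 were lower and 3 higher (median -0.59). The inducible synthase Ptges had 10.9 and 8.92 CPM in Il1f9-/- colons, against 33.2, 64.4 and 28.6 CPM in the libraries labelled Il1f5-/- (log2 fold change -2.09 ± 0.45, adjusted p = 0.0154), and the receptors Ptgir and Ptgfr were lower, at -1.72 ± 0.36 and -1.28 ± 0.29 on the log2 scale (adjusted p = 0.0081 and 0.0106). Ptges3, a synthase that is also the Hsp90 partner p23, was higher by 0.69 ± 0.11 (adjusted p = 0.00281). Proliferation genes gave 4 higher and 0 lower of 28 (median 0.50): Birc5, survivin, with 76.5 and 69.8 CPM in Il1f9-/- colons, against 27.6, 16.6 and 37.8 CPM in the libraries labelled Il1f5-/- (log2 fold change 1.42 ± 0.29, adjusted p = 0.0123), and Tyms, Cdk1 and Plk1 (0.64 ± 0.20, 1.05 ± 0.31 and 0.54 ± 0.17, adjusted p = 0.041, 0.0447 and 0.0464). Replicate 3 labelled Il1f5-/- was the highest of its group in Birc5, Cdk1 and Plk1. The 20 tested p53 targets gave 1 higher, the death receptor Tnfrsf10b (0.47 ± 0.14, adjusted p = 0.0323), and 1 lower, the kinase Plk2 (-0.90 ± 0.19, adjusted p = 0.00913), around a median of 0.06. Of 13 mitochondrial transcripts 1 was lower, mt-Nd5 (-0.45 ± 0.12, adjusted p = 0.0214; list median -0.05), and of 4 tested sex-linked genes 0 were called in edgeR's test, 0 in DESeq2's Wald test and 0 at an unadjusted p under 0.05, with Kdm5d nearest (-0.11 ± 0.09, adjusted p = 0.432; list median -0.03). For prostaglandins, 6 lower became 0 without Il1f9-/- replicate 2 and 3 without Il1f9-/- replicate 1; 3 higher became 1 without Il1f9-/- replicates 1 or 2 or labelled Il1f5-/- replicate 1. For proliferation, 4 higher became 0 without Il1f9-/- replicates 1 or 2, 1 without labelled Il1f5-/- replicate 1 or Il1f5+/+ replicates 1, 2 or 3 and 16 without labelled Il1f5-/- replicate 3. For p53 targets, 1 lower became 0 without Il1f9-/- replicates 1 or 2 and 2 without labelled Il1f5-/- replicate 3; 1 higher became 0 without Il1f9-/- replicates 1 or 2, labelled Il1f5-/- replicates 1 or 3 or Il1f5+/+ replicate 2 and 5 without Il1f9+/+ replicates 1 or 2. For mitochondrial transcripts, 1 lower became 0 without Il1f9-/- replicates 1 or 2 or labelled Il1f5-/- replicate 2 and 2 without labelled Il1f5-/- replicate 3. Calls were lost for Ptgir and Ptgfr without Il1f9-/- replicate 2 (adjusted p 0.0869 to 0.113), and for Ptges, Birc5 and Plk2 without Il1f9-/- replicates 1 or 2 (adjusted p 0.0646 to 0.126). Omitting a library ended calls for mt-Nd5 without Il1f9-/- replicates 1 or 2 or labelled Il1f5-/- replicate 2 (adjusted p 0.0625 to 0.154), and for Tnfrsf10b without Il1f9-/- replicates 1 or 2, labelled Il1f5-/- replicates 1 or 3 or Il1f5+/+ replicate 2 (adjusted p 0.0528 to 0.162). Adjusted p exceeded 0.05 for Cdk1 without Il1f9-/- replicates 1 or 2, labelled Il1f5-/- replicate 1 or Il1f5+/+ replicates 1, 2 or 3 (adjusted p 0.0647 to 0.185), and for Tyms without Il1f9-/- replicates 1 or 2, labelled Il1f5-/- replicates 1 or 2 or Il1f5+/+ replicates 1, 2 or 3 (adjusted p 0.0512 to 0.336). Calls also ended for Plk1 without Il1f9-/- replicates 1 or 2, labelled Il1f5-/- replicates 1 or 2, Il1f9+/+ replicates 1 or 2 or Il1f5+/+ replicates 1, 2 or 3 (adjusted p 0.0533 to 0.243). As a log2 fold change, the refit gave 0.40 without Il1f9-/- replicate 2 for Tyms and 0.36 without labelled Il1f5-/- replicate 2 for Plk1.

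Chaperones were among the stress genes that were higher. Of 25 immediate early and heat shock genes 10 were higher and 1 lower (median 0.20). Hspe1, the mitochondrial co-chaperonin Hsp10, had 256 and 257 CPM in Il1f9-/- colons, against 89.5, 97.9 and 132 CPM in the libraries labelled Il1f5-/- (log2 fold change 1.27 ± 0.17, adjusted p = 0.00232). Hsp90aa1, the inducible cytosolic Hsp90, had 472 and 545 CPM in Il1f9-/- colons, against 211, 239 and 291 CPM in the libraries labelled Il1f5-/- (log2 fold change 1.04 ± 0.15, adjusted p = 0.00211). Hsph1, an Hsp110 chaperone, and Atf3, a stress-induced transcription factor, were higher by 0.82 ± 0.12 and 1.06 ± 0.17 on the log2 scale (adjusted p = 0.00236 and 0.00295). All 4 calls held in every refit. Between the wild types 0 of the list were higher in Il1f9+/+ and 5 lower, and Hsph1 had 116 and 105 CPM in Il1f9+/+ and 207, 192 and 233 CPM in Il1f5+/+. In the counts, 1 lower became 0 without Il1f9-/- replicates 1 or 2; 10 higher became 6 without Il1f9-/- replicate 2. The heat shock element was searched as GAANNTTCNNGAA or TTCNNGAANNTTC on both strands of RefSeq promoter windows, 250 bases before to 50 after the start of a gene, GRCm38.p6. It was in 0.603% of 32851 windows, and in those of 3 of 19 list genes with a window, Hspd1, Hspe1 and Hsph1. The Hspe1 window (chr1:55087898-55088197, plus strand, 5′ to 3′) is shown because it holds 2 overlapping matches, in capitals, at a gene with a call in every refit. A match is a description of letters and not a site.
Hspe1: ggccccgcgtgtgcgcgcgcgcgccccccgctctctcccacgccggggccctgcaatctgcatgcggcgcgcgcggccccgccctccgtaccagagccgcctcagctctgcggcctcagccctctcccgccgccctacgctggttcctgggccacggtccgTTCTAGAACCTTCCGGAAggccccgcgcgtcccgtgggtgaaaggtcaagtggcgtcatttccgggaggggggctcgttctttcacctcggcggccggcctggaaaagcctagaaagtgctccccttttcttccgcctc

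The clock genes Dbp and Tef had the smallest adjusted p of the genes named in the knockout comparison. In the circadian clock the activators Arntl and Clock, or Npas2 in place of Clock, bind E-boxes and drive the repressors Per and Cry, the Nr1d receptors, Ciart and the output factors Dbp, Tef and Hlf. The Nr1d receptors in turn repress Arntl through RORE motifs, and Dbp, Tef and Hlf act through D-boxes. Arntl and the Nr1d, Dbp and Per genes therefore peak at opposite times of day in many tissues. Of 19 clock genes 13 were lower and 3 higher in Il1f9-/- colons (median -1.23), beside 10.1% lower and 11.2% higher over all genes. Clock genes are named here beyond the naming rule and after their values were seen.

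**Figure D4:**
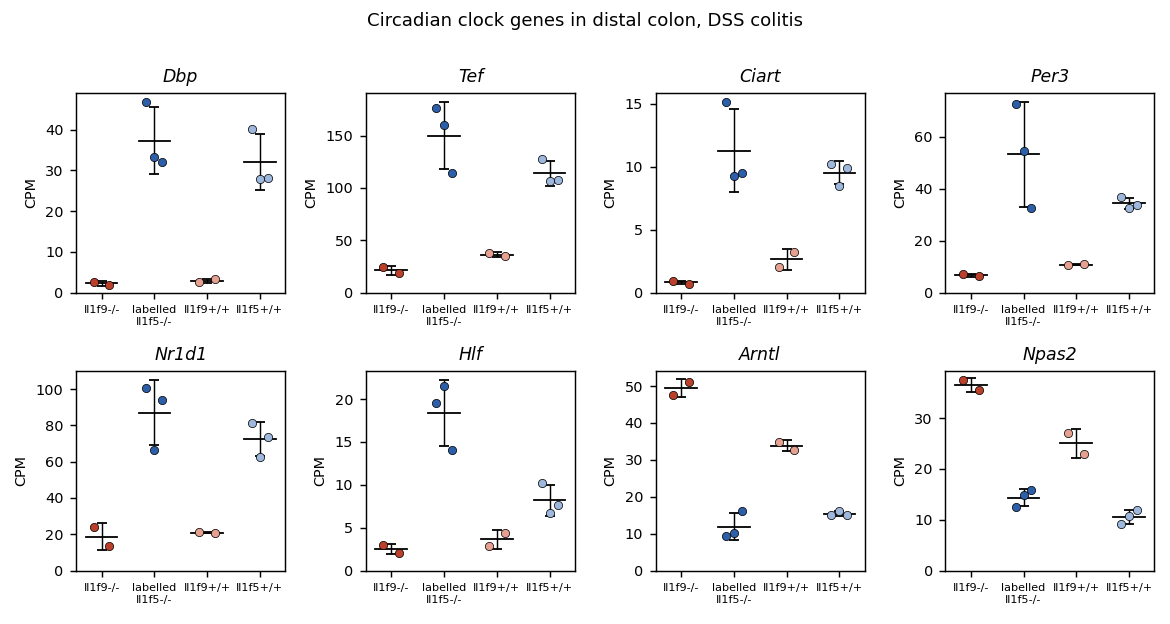
CPM of 8 circadian clock genes in each colitis library of the Il1f9-/-, labelled Il1f5-/-, Il1f9+/+ and Il1f5+/+ groups (points), with group means (lines) and SD (bars). In Dbp, Tef, Ciart, Per3, Nr1d1 and Hlf both groups of the Il1f9 line are lower than both groups of the Il1f5 line, and in Arntl and Npas2 they are higher.

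The output factors were lower. Dbp had 2.71 and 1.82 CPM in Il1f9-/- colons, against 46.7, 33.2 and 32.1 CPM in the libraries labelled Il1f5-/- (log2 fold change -4.05 ± 0.28, adjusted p = 0.00028). Tef had 24.1 and 18.4 CPM in Il1f9-/- colons, against 176, 159.8 and 114 CPM in the libraries labelled Il1f5-/- (log2 fold change -2.82 ± 0.20, adjusted p = 0.00029). Hlf had 2.95 and 2.08 CPM in Il1f9-/- colons, against 19.6, 21.5 and 14.1 CPM in the libraries labelled Il1f5-/- (log2 fold change -2.88 ± 0.30, adjusted p = 0.00095). Both Il1f9-/- colons lay far below every library labelled Il1f5-/- in these 3 genes. Ciart, a repressor of Clock and Arntl, had 0.904 and 0.71 CPM in Il1f9-/- colons, against 15.1, 9.26 and 9.47 CPM in the libraries labelled Il1f5-/- (log2 fold change -3.80 ± 0.33, adjusted p = 0.000642), and Per3 had 6.99 and 6.23 CPM in Il1f9-/- colons, against 72.8, 54.6 and 32.5 CPM in the libraries labelled Il1f5-/- (log2 fold change -3.01 ± 0.30, adjusted p = 0.00111). The repressor receptors Nr1d1 and Nr1d2 were lower, at -2.22 ± 0.26 and -1.61 ± 0.15 on the log2 scale (adjusted p = 0.00195 and 0.000903). Per1, Per2, Cry2, Bhlhe40, Bhlhe41 and Rora were lower, at -1.23 ± 0.28, -2.04 ± 0.36, -0.61 ± 0.13, -0.48 ± 0.10, -1.49 ± 0.33 and -0.64 ± 0.20 (adjusted p 0.0076 to 0.0411). The activator Arntl had 47.7 and 51.1 CPM in Il1f9-/- colons, against 9.48, 10.2 and 16.1 CPM in the libraries labelled Il1f5-/- (log2 fold change 2.05 ± 0.18, adjusted p = 0.000642), and Npas2 had 37.4 and 35.6 CPM in Il1f9-/- colons, against 12.5, 14.8 and 15.8 CPM in the libraries labelled Il1f5-/- (log2 fold change 1.35 ± 0.14, adjusted p = 0.00095). Cry1 was higher by 0.77 ± 0.18 (adjusted p = 0.0143). Clock and Nfil3 did not pass, with 0.19 ± 0.11 and -0.12 ± 0.37 (adjusted p = 0.233 and 0.85). Calls for Dbp, Tef, Hlf, Ciart, Per3, Nr1d1, Nr1d2, Arntl and Npas2 held in every refit. Calls also ended for Per2 without Il1f9-/- replicate 1 (adjusted p = 0.0523), and for Cry1 without Il1f9-/- replicate 2 (adjusted p = 0.144). Refits lost the call for Cry2, Bhlhe40 and Bhlhe41 without Il1f9-/- replicates 1 or 2 (adjusted p 0.0529 to 0.0903), and for Per1 without Il1f9-/- replicates 1 or 2 or labelled Il1f5-/- replicate 1 (adjusted p 0.0507 to 0.108). Calls failed in refits for Rora without Il1f9-/- replicates 1 or 2, labelled Il1f5-/- replicates 1 or 2 or Il1f5+/+ replicates 1 or 2 (adjusted p 0.0529 to 0.267). The list count of 13 lower became 7 without Il1f9-/- replicate 1 and 8 without Il1f9-/- replicate 2.

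The wild types of the 2 lines differed in the same direction. Dbp had 2.57 and 3.27 CPM in Il1f9+/+ and 40.03, 27.8 and 28.2 CPM in Il1f5+/+ (log2 fold change -3.45 ± 0.27, adjusted p = 0.000303). Arntl had 34.9 and 32.8 CPM in Il1f9+/+ and 15.1, 16.1 and 14.95 CPM in Il1f5+/+ (1.14 ± 0.18, adjusted p = 0.00787). In this comparison 7 of the 19 clock genes were lower and 2 higher in Il1f9+/+, beside 1.68% lower and 3.25% higher over all genes. Of the 13 genes lower in Il1f9-/- colons 12 had the same sign between wild types and 7 were called there, and of the 3 higher all 3 had the same sign and 2 were called. The difference of the knockout effects, that is the knockout difference less the wild-type difference, was -0.60 ± 0.37 for Dbp (adjusted p = 0.254), -1.17 ± 0.25 for Tef (adjusted p = 0.00965), -1.95 ± 0.43 for Ciart (adjusted p = 0.0084) and 0.92 ± 0.26 for Arntl (adjusted p = 0.026). Line and genotype cannot be told apart in the knockout difference alone, and the part of the clock difference in other gene groups was not tested.

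Motifs of the clock loop were searched in the same RefSeq windows, on both strands. CACGTG (E-box) was in 7.15% of 32851 windows, TTANGTAA (D-box) in 2.32% and the RORE in 0.384%. Of 16 clock genes with a window, 5 held an E-box (Bhlhe41, Ciart, Cry1, Per1 and Tef), 1 a D-box (Per3) and 1 a RORE (Arntl). Windows with no match say only that these letters are not in them. The windows of Ciart, Tef, Per3 and Arntl are shown because these genes had calls in every refit and hold an E-box, a D-box or a RORE, with matches in capitals, 5′ to 3′ on the strand of the gene. They are chr3:95882179-95882478 on the minus strand for Ciart with 3 E-boxes, chr15:81802423-81802722 on the plus strand for Tef with 1 E-box, chr4:151044616-151044915 on the minus strand for Per3 with 2 D-boxes, and chr7:113207261-113207560 on the plus strand for Arntl with 1 RORE, in RefSeq GRCm38.p6. Tef and Arntl have 2 windows each, of which one is shown.
Ciart: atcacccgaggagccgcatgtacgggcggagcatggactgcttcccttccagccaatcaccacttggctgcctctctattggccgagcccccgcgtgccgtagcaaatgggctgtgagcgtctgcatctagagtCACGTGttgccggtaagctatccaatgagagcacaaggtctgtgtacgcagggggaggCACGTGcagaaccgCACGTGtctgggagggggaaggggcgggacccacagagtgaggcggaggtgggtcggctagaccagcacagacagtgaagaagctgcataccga
Tef: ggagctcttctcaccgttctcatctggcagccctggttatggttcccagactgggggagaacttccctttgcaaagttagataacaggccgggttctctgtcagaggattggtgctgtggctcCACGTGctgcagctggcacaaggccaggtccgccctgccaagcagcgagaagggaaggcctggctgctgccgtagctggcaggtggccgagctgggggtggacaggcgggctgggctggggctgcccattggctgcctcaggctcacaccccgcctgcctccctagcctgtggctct
Per3: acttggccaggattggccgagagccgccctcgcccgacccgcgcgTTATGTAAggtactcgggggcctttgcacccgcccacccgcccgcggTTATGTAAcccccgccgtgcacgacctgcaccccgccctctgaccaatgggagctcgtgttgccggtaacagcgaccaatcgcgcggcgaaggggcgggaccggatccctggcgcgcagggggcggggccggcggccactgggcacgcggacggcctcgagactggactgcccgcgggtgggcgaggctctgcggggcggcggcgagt
Arntl: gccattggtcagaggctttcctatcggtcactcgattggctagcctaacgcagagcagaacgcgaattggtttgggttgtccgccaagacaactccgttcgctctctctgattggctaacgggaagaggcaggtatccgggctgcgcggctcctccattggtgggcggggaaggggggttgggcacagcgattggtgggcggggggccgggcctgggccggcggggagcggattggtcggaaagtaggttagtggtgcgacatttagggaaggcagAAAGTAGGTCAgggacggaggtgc

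Lists outside the clock compared differently between the wild types. Of 17 NF-kB genes 6 were called higher in Il1f9+/+ and 0 lower, beside 3.25% and 1.68% of all genes. Fatty acid oxidation gave 6 higher and 1 lower of 21, and goblet cell markers 0 higher and 4 lower of 16. Between knockouts and wild types the signs were opposite in most neutrophil, macrophage, endothelial and matrix members, while 35 of 44 interferon-response and 11 of 16 goblet cell members had negative log2 fold changes in both, most of them not called between the knockouts. Between Il1f9+/+ and Il1f5+/+, 594 genes were higher (3.25%) and 308 lower (1.68%). These counts became 98 and 20 without Il1f9+/+ replicate 2 and 885 and 921 with the 2 wild-type groups fitted alone, and the overlaps given next rest on the 594 and 308. Across all 18299 genes the log2 fold changes of the knockouts and of the wild types had a Pearson r of -0.344, a description across genes that share these libraries' scaling. Of 3904 genes called between the knockouts 392 were called with the opposite sign between the wild types, 10.0% of the knockout calls and 43.5% of the 902 wild-type calls, and 40 with the same sign, 1.02% and 4.43%. Arg1, arginase 1 of alternatively activated and wound macrophages, had 21.1 and 19.02 CPM in Il1f9+/+ and 3.11, 3.74 and 3.03 CPM in Il1f5+/+ (2.61 ± 0.21, adjusted p = 0.000303), but 3.08 and 2.08 CPM in Il1f9-/- colons, against 4.82, 5.18 and 6.65 CPM in the libraries labelled Il1f5-/- (log2 fold change -1.11 ± 0.23, adjusted p = 0.00825). Cxcl13, the B cell attractant, had 53.2 and 94.4 CPM in Il1f9+/+ and 7.07, 7.11 and 11.3 CPM in Il1f5+/+ (3.11 ± 0.28, adjusted p = 0.00231), but 8.26 and 8.31 CPM in Il1f9-/- colons, against 19.99, 27.3 and 19.00 CPM in the libraries labelled Il1f5-/- (log2 fold change -1.42 ± 0.30, adjusted p = 0.0114). Acot1, an acyl-CoA thioesterase, differed between wild types (1.90 ± 0.18, adjusted p = 0.0011) with overlapping knockout groups (10.1 and 13.6 CPM in Il1f9-/- colons, against 9.32, 12.7 and 12.7 CPM in the libraries labelled Il1f5-/-), and Spon2, a matrix protein, was higher in the Il1f9 line in both comparisons, by 1.41 ± 0.15 between wild types (adjusted p = 0.00231) and 0.47 ± 0.15 between knockouts (adjusted p = 0.0446). Leave-one-out refits ended calls for Arg1 without Il1f9-/- replicate 2 (adjusted p = 0.093), and for Cxcl13 without Il1f9-/- replicates 1 or 2 (adjusted p 0.0744 to 0.0925). Single refits cost the call for Spon2 without Il1f9-/- replicates 1 or 2, labelled Il1f5-/- replicates 1, 2 or 3 or Il1f5+/+ replicates 1, 2 or 3 (adjusted p 0.051 to 0.369). The log2 fold change was 0.25 without Il1f9-/- replicate 1 for Spon2.

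**Figure D5:**
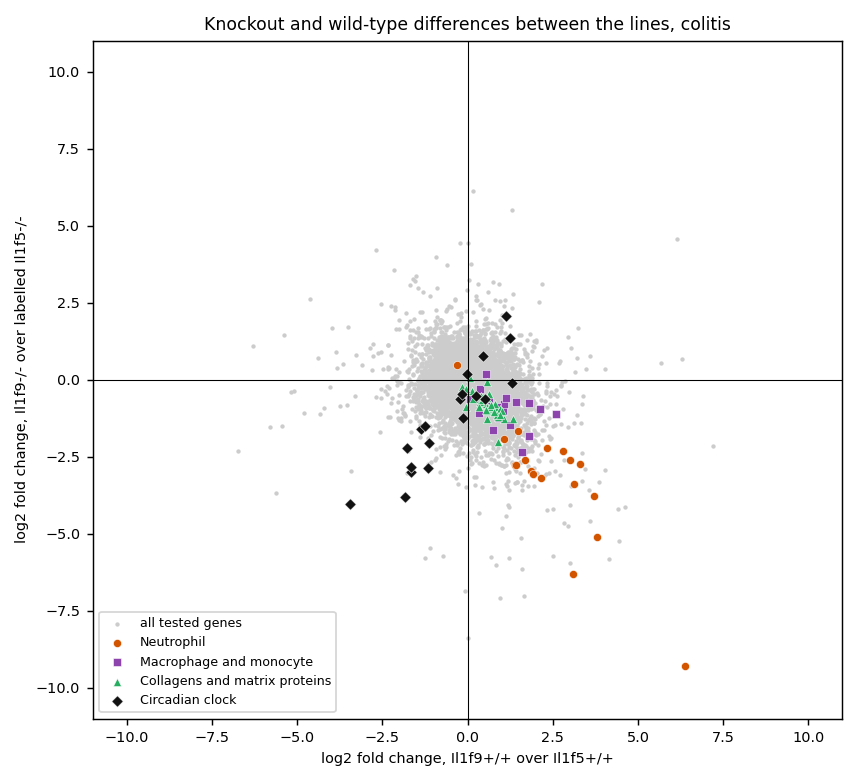
Log2 fold change of each of the 18299 tested genes between Il1f9-/- and the libraries labelled Il1f5-/- (vertical axis) against that between Il1f9+/+ and Il1f5+/+ (horizontal axis), with members of 4 lists in colour. In the lower right, lower between knockouts and higher between wild types, lie 17 of 18 neutrophil, 19 of 20 macrophage and 31 of 35 matrix members, and 12 of 19 clock genes lie in the lower left.

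The difference of the knockout effects, Il1f9-/- over Il1f9+/+ less labelled Il1f5-/- over Il1f5+/+, was called for 2189 genes with a positive value (12.0%) and 2346 with a negative one (12.8%). It shares all knockout libraries with the comparison above, so its values stand beside the others and are no second support. The 6 genes with the smallest p under the naming rule all had negative values. Cd33, an inhibitory receptor of myeloid cells, had 4.16 and 3.85 CPM in Il1f9-/- colons, against 14.4, 21.4 and 19.7 CPM in the libraries labelled Il1f5-/-, and 23.4 and 30.8 CPM in Il1f9+/+ against 9.06, 7.42 and 11.4 CPM in Il1f5+/+ (difference of effects -3.75 ± 0.32, adjusted p = 0.000291). C5ar1, the receptor of complement C5a, had 6.57 and 3.9 CPM in Il1f9-/- colons, against 14.6, 18.6 and 20.8 CPM in the libraries labelled Il1f5-/-, and 30.97 and 28.3 CPM in Il1f9+/+ against 6, 7.67 and 8.59 CPM in Il1f5+/+ (-3.78 ± 0.33, adjusted p = 0.000291). Lrrc25, Igsf6, Arg1 and Cxcl12 had differences of -3.18 ± 0.25, -3.49 ± 0.30, -3.72 ± 0.32 and -1.94 ± 0.15 (each adjusted p = 0.000291). Neutrophil markers gave 17 negative and 0 positive calls of 18, endothelium 18 and 0 of 19, and collagens and matrix proteins 29 and 0 of 35.

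The same genotypes were also compared in tumours of the azoxymethane and DSS model, with 2 Il1f9-/- and 2 labelled Il1f5-/- libraries from other samples. There 2181 of 17859 genes were higher (12.2%) and 1756 lower (9.83%). The first principal component of the 8 tumour libraries held 49.9% of the variance and set the lines apart. Il1f9+/+ tumours stood at 72.3 and 54.9, beside 44.9 and 51.3 for Il1f9-/-. Il1f5+/+ tumours stood at -65.0 and -62.45, beside -44.6 and -51.3 for those labelled Il1f5-/-. Line and genotype cannot be told apart in the tumour differences that follow. Il1f9 had 2 and 0 counts in Il1f9-/- tumours, against 140 and 142 in those labelled Il1f5-/-, and Il1f5 had 0 and 0 counts against 211 and 102, so the reads of Il1f5 again sat in the libraries labelled Il1f5-/-. Neutrophil markers gave 12 higher and 0 lower of 20 tested in Il1f9-/- tumours (median 1.85), macrophage markers 6 higher and 0 lower of 19 (median 0.53), and endothelial markers 0 higher and 4 lower of 19 (median -0.67). Of clock genes 3 were higher and 0 lower of 19, and Dbp had 5.19 and 4.83 CPM in Il1f9-/- tumours and 2.41 and 2.67 CPM in tumours labelled Il1f5-/- (0.98 ± 0.32, adjusted p = 0.0577). Across 16774 genes tested in both tissues the log2 fold changes had a Pearson r of 0.0191. Of genes called in both, 639 had the same sign, 17.0% of the colitis calls and 16.8% of the tumour calls, and 326 the opposite sign, 8.66% and 8.55%. Csf3r, which was lower in Il1f9-/- colons, had 139 and 69.3 CPM in Il1f9-/- tumours and 19.3 and 26.1 CPM in tumours labelled Il1f5-/- (2.20 ± 0.38, adjusted p = 0.00896), while Vsig1, which was higher in Il1f9-/- colons, had 112 and 60.8 CPM in Il1f9-/- tumours and 22.00 and 24.4 CPM in tumours labelled Il1f5-/- (1.90 ± 0.28, adjusted p = 0.004). Whether an effect differs between the tissues was not tested.

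The authors' deposited table gives its own comparison of the knockouts. It called 2377 genes higher and 1985 lower at an adjusted p under 0.05, of which 1881 and 1538 were among the genes called higher and lower here. The authors' deposited table lists an Il1f9-/- mean above 0 for 1062 genes that have 0 counts in both Il1f9-/- libraries used here, and 0 such genes for Il1f5-/-, so its Il1f9-/- mean cannot come from these 2 libraries alone.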

How the data were processed

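RNA-seq was analysed from 10 colitis and 8 tumour libraries, from poly(A) RNA without strand information and read as 150 base pairs from both ends, per the labels' protocols. Reads were trimmed, aligned and counted with Trim Galore 0.6.4, HISAT2 2.0.5 and featureCounts 2.0.0, per the submitters' processing notes, but no source used here names the build of the genome. Whole-number read counts per gene, as deposited by the authors, were used for all results. The deposited FPKM columns were not used. Group means of scaled counts, a signal deposited by the authors, served only to check their table. The authors' deposited log2 fold changes and p-values were counted but not refitted, and no source used here names the tool behind them.

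Counts were filtered by edgeR's filterByExpr on group, scaled by TMM and fitted in edgeR 4.0.16 (quasi-likelihood F test, robust) with a mean for each of the 4 groups over all 10 colitis libraries, which then share 1 estimate of spread, and separately over the 8 tumour libraries. Every adjusted p is edgeR's quasi-likelihood p adjusted by Benjamini-Hochberg over all genes tested, called under 0.05. Fold changes are Il1f9-/- over the libraries labelled Il1f5-/-, and the SE is the size of the log2 fold change over the square root of F. For a fold bound, a count of 0 was set at a floor of 3 counts over the group, and floors and intervals cover counting error only. Scripts were tested on simulated data. Alternatives were DESeq2 1.42.0 size factors and its Wald test, no filter, the 2 groups alone, a change of at least 2-fold, the replicate number as a block, and leaving out each library.

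Genes were named by rule: the 10 largest rises and 10 largest falls among called genes with a mean log2 CPM of at least 1 over the colitis libraries and no overlap between the knockout groups, leaving out predicted genes and antigen receptor segments, up to 4 called members of each list by p (the member of smallest p where none was called), the 6 smallest p of the wild types and of the difference of effects under the same filters on level and gene class (overlap between knockout groups was not a criterion there), and the IL-36 genes. A few genes that the rule picked are not reported here. The members and lists were chosen with earlier results of these data known. Promoter sequences are from RefSeq GRCm38.p6.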

Additional observations from a re-analysis of the deposited data

Results flagged for a closer look

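The effects of the knockouts differed between the lines, by the interaction term of edgeR's quasi-likelihood test. The difference of effects is Il1f9-/- over Il1f9+/+ less labelled Il1f5-/- over Il1f5+/+, and it was called for 2189 genes with a positive value and 2346 with a negative one. The 6 genes with the smallest p under the naming rule were Cxcl12 at -1.94, Lrrc25 at -3.18, Cd33 at -3.75, Arg1 at -3.72, Igsf6 at -3.49 and C5ar1 at -3.78 on the log2 scale. Of the colitis libraries only those labelled Il1f5-/- held Il1f5 reads, while the wild types had none. What this says of their genotype was not tested, and every one of these values rests on that label.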

How the results depend on the processing

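Counts of called genes are given as higher and lower. For Il1f9-/- over labelled Il1f5-/- colons, 2055 and 1849 became 215 and 688 with a change of at least 2-fold, and were within 1.5 times under DESeq2 size factors, its Wald test, no filter, the 2 groups alone and the replicate block. For Il1f9+/+ over Il1f5+/+, 594 and 308 became 285 and 54 at 2-fold, 1066 and 906 by the Wald test, 977 and 735 without the filter, 237 and 66 with the replicate block, and 885 and 921 with the 2 groups alone. The difference of effects had 614 positive calls at 2-fold, against 2189. In tumours, 2181 and 1756 became 953 and 933 at 2-fold and 1155 and 831 with the 2 groups alone. A 2-fold minimum removes calls by construction, and otherwise the cause was not tested.

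Leaving out 1 library gave 486 to 2357 higher and 399 to 2672 lower in the colitis knockouts, lowest without Il1f9-/- replicate 2 and highest without labelled Il1f5-/- replicate 3. The wild types gave 98 to 984 and 20 to 914, lowest without Il1f9+/+ replicate 2 and highest without labelled Il1f5-/- replicate 3. The difference of effects gave 800 to 2703 positive, lowest without Il1f9+/+ replicate 2, and 1063 to 3141 negative, lowest without Il1f9-/- replicate 2, both highest without labelled Il1f5-/- replicate 3. Tumours gave 378 to 2414 and 265 to 2258, lowest without labelled Il1f5-/- replicate 1 and highest without Il1f9-/- replicate 1. A group left with 1 library is assumed to vary like the others. Of 169 named genes called, 70 were called without Il1f9-/- replicate 2 and 106 without replicate 1.

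Signs turned for 3 uncalled genes on leaving out 1 library: Nfil3 ran from -0.30 to 0.0723, Ctss from -0.00088 to 0.187 and Acot1 from -0.21 to 0.238 on the log2 scale. With the replicate block Nfil3 was at 0.0194, and 134 of the 169 were called. No pairing by replicate number was seen, as deviations of same-numbered libraries correlated at -0.217 to 0.0941 between groups. This cannot exclude a pairing of samples. Il1f9+/+ replicate 2 carries the letter C in its label, and pairing by letter was not tested. With 2 Il1f9-/- libraries the spread of that group is poorly known.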

Other observations

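Nlrp1b, an inflammasome sensor of the mouse, stood apart by genotype in both lines. It had 0.422 and 0.355 CPM in Il1f9-/- colons and 1.52, 1.10 and 1.52 CPM in the libraries labelled Il1f5-/-, against 19.6 and 16.00 CPM in Il1f9+/+ and 15.1, 14.7 and 17.6 CPM in Il1f5+/+. The log2 fold change was -5.50 ± 0.27 for Il1f9-/- over Il1f9+/+ (SE, edgeR adjusted p = 4.05e-06) and -3.52 ± 0.19 for labelled Il1f5-/- over Il1f5+/+ (adjusted p = 8.75e-06). All 5 knockout libraries lay below all 5 wild-type libraries.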
